A study of Arabidopsis thaliana with 11 samples.

Results

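The xpo4-2 cpr5 double mutant of Arabidopsis thaliana was set against the cpr5 single mutant, over every gene measured, to ask what the loss of XPO4 changes in seedlings whose defence is already active. The comparison rests on 6 of the 11 mRNA libraries of the series, chosen by the genotype in their titles, and covers 22160 measured genes. Both genotypes carry a cpr5 mutation, whose allele the labels do not name, and the 3 double-mutant libraries add the xpo4-2 allele to it. The effect of xpo4-2 in plants with functional CPR5 was taken from 2 xpo4-2 libraries and 3 libraries of wild type (Col-0), and serves only to test whether a change depends on cpr5. All seedlings were 10 days old and untreated, had grown on a medium with sucrose and were harvested whole, so that each library pools roots and shoots. The labels do not say whether replicates were separate sowings, and p-values therefore measure no more than the spread among the libraries, part of which may be technical.

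CPR5 spans the nuclear envelope at the pore, and plants that lack it accumulate salicylic acid (SA), show spontaneous lesions and stay small. XPO4 encodes exportin-4, a receptor that carries cargo through the pore. SA synthesis starts in the plastid, where isochorismate synthase turns chorismate into isochorismate. EDS5 exports isochorismate, and PBS3 conjugates it on the way to free SA. The transcription factors SARD1 and CBP60G switch these genes on, and jasmonate, the hormone of wounding, acts largely in opposition to SA.

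Library totals ran from 16922732 to 23088104 counts. Genes were tested with edgeR's quasi-likelihood test, and one is said to have risen, fallen or passed where its Benjamini-Hochberg adjusted p lay under 0.05. Levels are given in CPM, counts scaled to the effective library size, for replicates 1, 2 and 3 of each genotype, and fold changes are the double mutant over cpr5. They compare 1 gene between genotypes, and levels of different genes are not comparable since CPM takes no account of length. Near-identical copies share reads, so that the values of LHCB1 and LHCB2 genes, Rubisco small subunits, VSP1 and VSP2, BIP1 and BIP2, the AOC genes and neighbouring glutathione transferases or CRK genes are uncertain as to the single copy.

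XPO4 (AT3G04490) was low in the double mutant. XPO4 had 2.09, 0 and 2.27 CPM in xpo4-2 cpr5, against 22.9, 18.3 and 27.7 CPM in cpr5 (log2 fold change -3.95, SE 0.819, adjusted p = 0.00715). The groups did not overlap. It had 1.001 and 4.80 CPM in xpo4-2 and 19.6, 21.3 and 23.5 CPM in wild type. CPR5 (AT5G64930) is the other mutated gene, and its transcript does not mark the mutation. CPR5 had 23.6, 24.6 and 23.7 CPM in xpo4-2 cpr5, against 15.5, 17.8 and 14.98 CPM in cpr5 (log2 fold change 0.57, SE 0.183, adjusted p = 0.0476). That call was lost when any of the 6 libraries was left out, with adjusted p = 0.0832 to 0.141 without xpo4-2 cpr5 replicate 1, 2 or 3 or cpr5 replicate 1, 2 or 3, and with the replicate block.

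Loss of XPO4 in cpr5 moved a large share of the transcriptome. Of 21580 genes tested, 1904 rose (8.82%) and 2778 fell (12.9%), or 21.7% in all. A change of at least 2-fold was seen in 754 of the genes that rose and in 1404 of those that fell, and of at least 8-fold in 76 and 136. Groups did not overlap in 4672 of the 4682 genes that passed, which selection by p favours and which is no separate support. Of all tested genes, 23.6% had every double-mutant library above every cpr5 library, and 24% had every one below. The balance of rises and falls rests on the scaling of the libraries. With TMM factors, which were 1.13 to 1.18 in the double mutant and 0.938 to 0.978 in cpr5, 40.7% of the genes that passed had risen. Without scaling, 4247 rose and 1787 fell (70.4% risen), and the median over all genes (log2) was 0.27 instead of 0.01. The number of rises fell to between 852 and 1365 when 1 of the 6 libraries was left out and that of falls to between 1819 and 2395, and 2328 of the 4682 genes passed whichever was omitted.

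**Figure D1:**
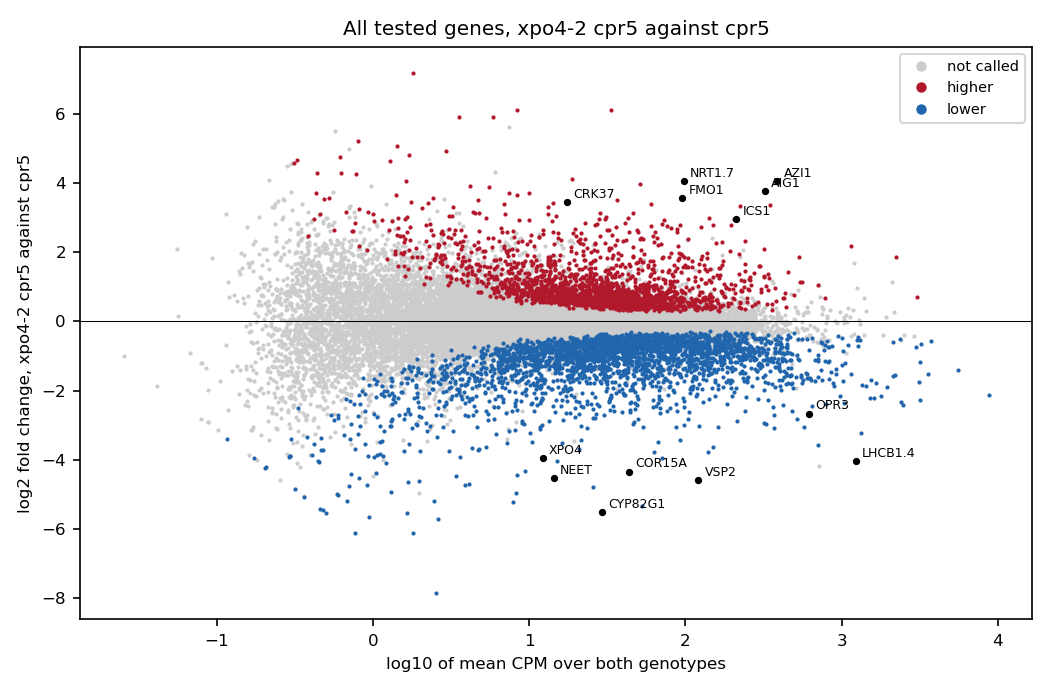
Log2 fold change of xpo4-2 cpr5 against cpr5 (vertical axis) against log10 of the mean CPM over both genotypes (horizontal axis) for the 21462 tested genes with a count in both genotypes. Red points rose, blue points fell, grey points did not pass, and the labelled genes are described in the text, with XPO4, VSP2 and LHCB1.4 among the deep falls and FMO1, AZI1 and NRT1.7 among the large rises.

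Genes were grouped into 48 lists, 41 of pathways or families and 7 of cell type markers. The share that rose exceeded 8.82% in the lists of SA synthesis, immune receptors, ER chaperones, phosphate starvation and autophagy. The share that fell exceeded 12.9% in those of photosynthesis, chlorophyll synthesis, jasmonate, glucosinolates, aquaporins and the cold response.

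**Figure D2:**
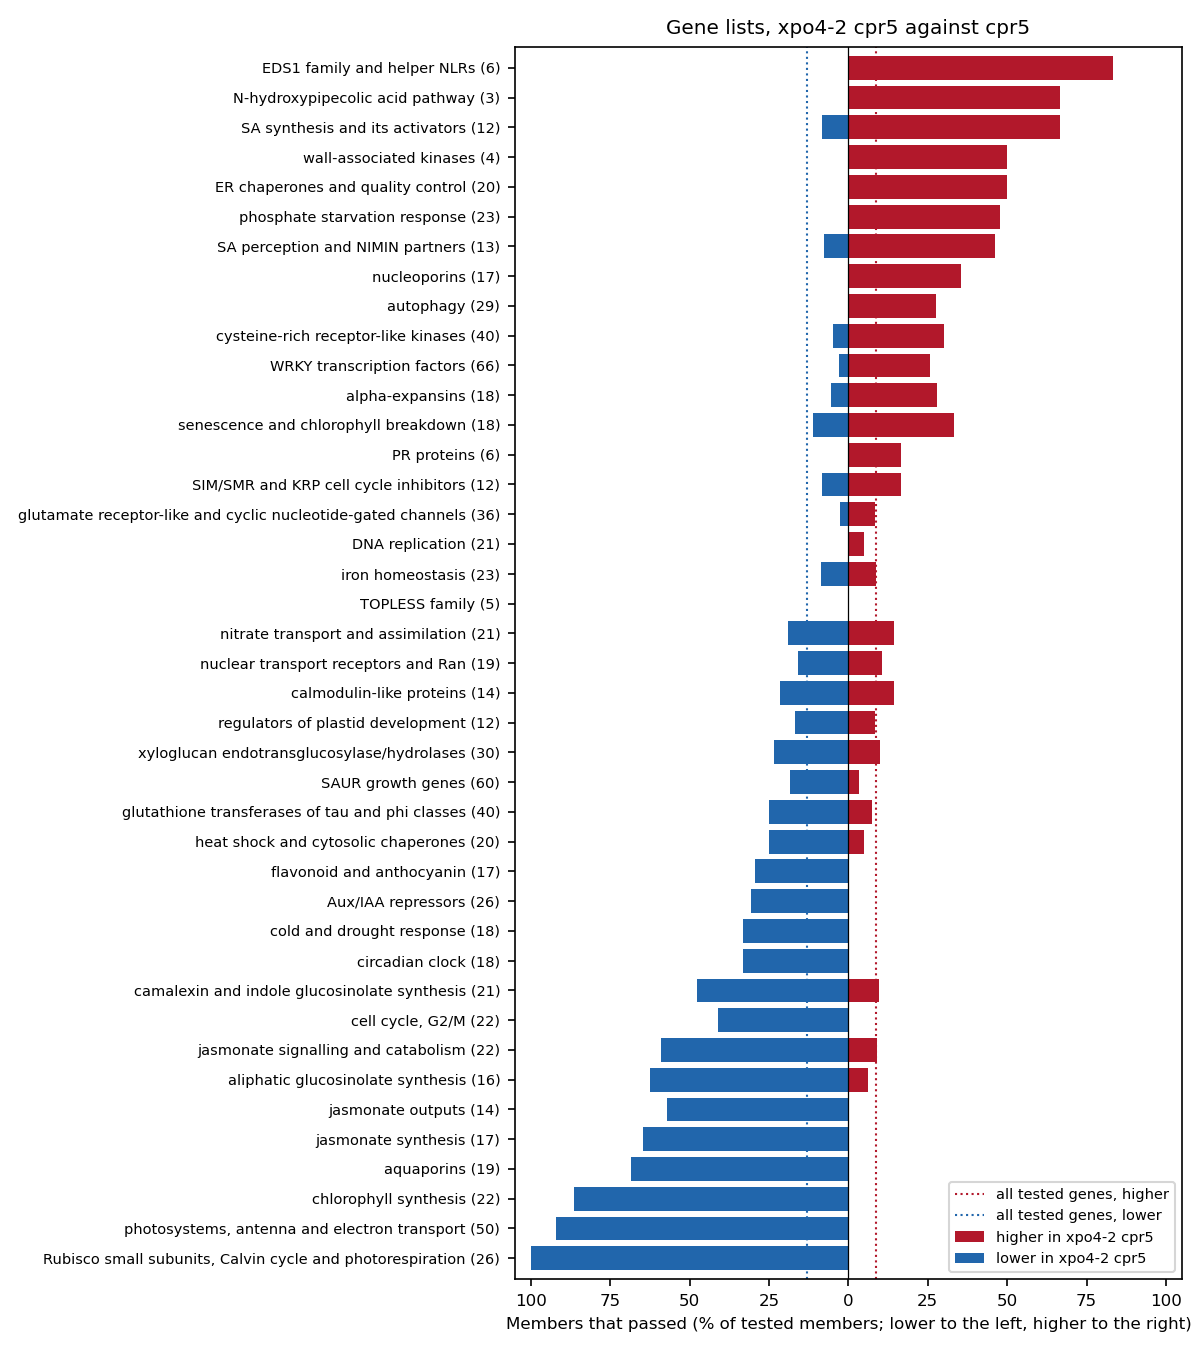
Percentage of the tested members of each pathway or family list (their number in parentheses) that rose (red, to the right) or fell (blue, to the left) in xpo4-2 cpr5 against cpr5. Dotted lines mark the percentages over all tested genes, 8.82% higher and 12.9% lower, and the bars run from the EDS1 family, where 5 of 6 genes rose, to the Rubisco and Calvin cycle genes, where all 26 fell.

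Most genes for making SA, activating its synthesis or removing it were higher in the double mutant than in cpr5. The list of SA synthesis and its activators also holds enzymes that remove SA. Of its 12 genes 8 rose and 1 fell, with a median log2 fold change of 1.14, beside 0.01 over all genes. ICS1, which encodes the enzyme of the committed step, had 420.5, 309 and 401 CPM in xpo4-2 cpr5, against 57.7, 43.2 and 42.8 CPM in cpr5 (log2 fold change 2.98, SE 0.299, adjusted p = 0.000185). PBS3 had 362, 272 and 390.0 CPM in xpo4-2 cpr5, against 55.4, 40.3 and 51.0 CPM in cpr5 (log2 fold change 2.80, SE 0.345, adjusted p = 0.000463). In both, the lowest double-mutant library lay far above the highest cpr5 library. The activators changed less. SARD1 had 492, 418 and 449 CPM in xpo4-2 cpr5, against 183, 147 and 120.2 CPM in cpr5 (log2 fold change 1.59, SE 0.191, adjusted p = 0.000409). CBP60G had 239, 203 and 248 CPM in xpo4-2 cpr5, against 107, 85.3 and 79.1 CPM in cpr5 (log2 fold change 1.35, SE 0.199, adjusted p = 0.00118). DMR6 and UGT74F2, whose products remove SA, rose with them. DMR6, an SA hydroxylase, had 389, 350.1 and 362 CPM in xpo4-2 cpr5, against 168, 128 and 153 CPM in cpr5 (log2 fold change 1.29, SE 0.228, adjusted p = 0.00311). UGT74F2, which attaches glucose to SA, reached 196, 220.2 and 179 CPM in xpo4-2 cpr5, against 89.4, 80.0 and 89.5 CPM in cpr5 (log2 fold change 1.202, SE 0.144, adjusted p = 0.000402). Groups did not overlap in any of these 6 genes. Less firm rises were those of EDS5 (log2 fold change 0.999, adjusted p = 0.0203, and 0.0563 to 0.0827 without xpo4-2 cpr5 replicate 1 or 3 or cpr5 replicate 2 or 3) and WRKY28 (log2 fold change 1.09, adjusted p = 0.046, and 0.0638 to 0.198 without xpo4-2 cpr5 replicate 2 or 3 or cpr5 replicate 1, 2 or 3).

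ICS2, the minor isochorismate synthase, had 1.37, 1.67 and 1.01 CPM in xpo4-2 cpr5, against 5.71, 5.18 and 7.07 CPM in cpr5 and was the one fall (log2 fold change -2.15, SE 0.373, adjusted p = 0.00291). It had 6.39 and 17.7 CPM in xpo4-2 and 12.2, 15.4 and 15.8 CPM in wild type. EPS1, DLO1 and UGT74F1 did not pass, at log2 fold changes of 0.36, 0.91 and 0.92. Where CPR5 was functional, ICS1 had 17.63 and 24.1 CPM in xpo4-2 and 14.0, 21.1 and 34.4 CPM in wild type, and PBS3 had 7.62 and 7.19 CPM in xpo4-2 and 2.35, 7.64 and 8.47 CPM in wild type. The effect of xpo4-2 on ICS1 was more positive in cpr5 than in wild type by 3.12 (SE 0.442, adjusted p = 0.00361) on the log2 scale, and that on PBS3 by 2.54 (SE 0.527, adjusted p = 0.0163).

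Signalling around SA rose as well. N-hydroxypipecolic acid is the signal of systemic resistance, and 2 of its 3 measured genes rose. FMO1, whose product makes the active compound, had 207, 149 and 172 CPM in xpo4-2 cpr5, against 14.4, 13.0 and 16.7 CPM in cpr5 (log2 fold change 3.58, SE 0.412, adjusted p = 0.000329). UGT76B1, whose product glucosylates it, had 136, 103 and 98.8 CPM in xpo4-2 cpr5, against 32.0, 28.9 and 32.0 CPM in cpr5 (log2 fold change 1.86, SE 0.385, adjusted p = 0.00702). Both genes separated the genotypes completely. ALD1, which makes the precursor, did not pass (log2 fold change 2.08, adjusted p = 0.0577). Of the EDS1 family and its helper receptors 5 of 6 rose, and 0 fell with edgeR (0 at an unadjusted p under 0.05, 0 with DESeq2 and 0 with limma). PAD4, a partner of EDS1, had 261, 209 and 272 CPM in xpo4-2 cpr5, against 106, 84.7 and 64.0 CPM in cpr5 (log2 fold change 1.54, SE 0.265, adjusted p = 0.00277). ADR1 had 48.4, 37.3 and 45.4 CPM in xpo4-2 cpr5, against 19.0, 20.3 and 19.2 CPM in cpr5 (log2 fold change 1.16, SE 0.199, adjusted p = 0.00272). ADR1-L2 rose by 0.48 (adjusted p = 0.00615). These helper receptors act downstream of EDS1 complexes. EDS1 itself rose too (log2 fold change 0.62, adjusted p = 0.0132), with adjusted p = 0.0567 without cpr5 replicate 3. Rises in this list numbered 3 without cpr5 replicate 3.

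Among 13 receptors and partners of SA perception 6 rose and 1 fell. NPR3 had 329, 302 and 278 CPM in xpo4-2 cpr5, against 228, 178 and 166 CPM in cpr5 (log2 fold change 0.67, SE 0.142, adjusted p = 0.00776). NPR4 had 117, 116 and 97.0 CPM in xpo4-2 cpr5, against 66.8, 53.0 and 59.3 CPM in cpr5 (log2 fold change 0.88, SE 0.173, adjusted p = 0.00553). Both encode SA receptors that act as corepressors. The coactivator NPR1 did not pass (log2 fold change 0.10, adjusted p = 0.567). TGA1 had 102, 107 and 132 CPM in xpo4-2 cpr5, against 57.1, 50.3 and 46.5 CPM in cpr5 (log2 fold change 1.15, SE 0.242, adjusted p = 0.00779), with every double-mutant library above every cpr5 library. It encodes a bZIP factor that binds NPR1. NIMIN3, a small NPR1-binding protein, was the only member to fall, at 16.8, 20.4 and 11.04 CPM in xpo4-2 cpr5, against 34.2, 34.1 and 27.5 CPM in cpr5 (log2 fold change -0.99, SE 0.231, adjusted p = 0.0126). Rises numbered 3 without cpr5 replicate 2. Of 6 PR proteins, the secreted products of the response, only PR2 passed, at 458, 407 and 342 CPM in xpo4-2 cpr5, against 123, 42.8 and 76.8 CPM in cpr5 (log2 fold change 2.32, SE 0.529, adjusted p = 0.0115). PR1 had 2218, 1629 and 1659.7 CPM in xpo4-2 cpr5, against 787, 407 and 506 CPM in cpr5 and did not pass (log2 fold change 1.696, adjusted p = 0.101), although its groups did not overlap.

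**Figure D3:**
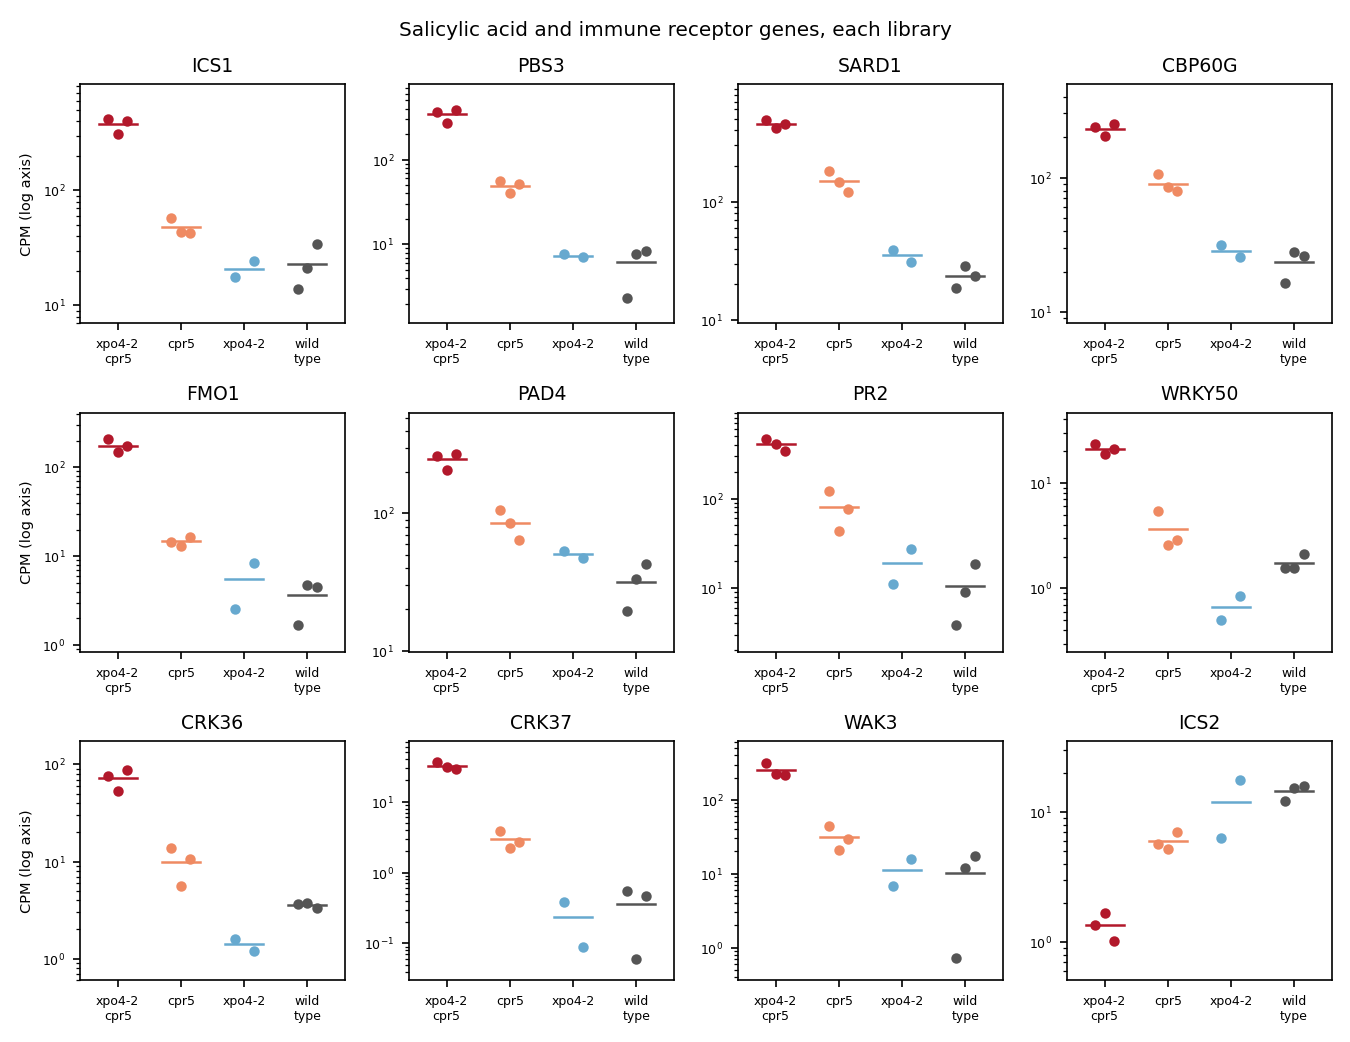
CPM on a log axis in each library (points) with the group mean (line) for SA and immune genes, with xpo4-2 cpr5 at the left, then cpr5, xpo4-2 and wild type. The 3 double-mutant libraries lie above the 3 cpr5 libraries in every panel except ICS2, where they lie below, at 1.37, 1.67 and 1.01 CPM.

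Transcription factors of the WRKY family and surface receptor kinases followed the same direction. WRKY factors bind the W box and control much of the immune response, and 17 of 66 rose while 2 fell (25.8% and 3.03%). WRKY50 had 23.3, 18.8 and 21.2 CPM in xpo4-2 cpr5, against 5.39, 2.59 and 2.90 CPM in cpr5 (log2 fold change 2.54, SE 0.319, adjusted p = 0.000507). WRKY60 had 23.7, 19.4 and 20.0 CPM in xpo4-2 cpr5, against 7.10, 6.11 and 5.13 CPM in cpr5 (log2 fold change 1.78, SE 0.217, adjusted p = 0.000445). WRKY50 takes part in PR1 activation, and both genes separated the genotypes. Further members that rose whichever library was left out were WRKY59 (log2 fold change 3.101, adjusted p = 0.00743), WRKY47 (log2 fold change 2.33, adjusted p = 0.00349), WRKY46 (log2 fold change 1.57, adjusted p = 0.00367), WRKY57 (log2 fold change 1.403, adjusted p = 0.00174), WRKY14 (log2 fold change 1.401, adjusted p = 0.00844), WRKY70 (log2 fold change 1.38, adjusted p = 0.00567), WRKY54 (log2 fold change 1.33, adjusted p = 0.00916) and WRKY58 (log2 fold change 1.28, adjusted p = 0.0085). WRKY40, a repressor that is induced early by microbial patterns, fell to 133, 136 and 87.5 CPM in xpo4-2 cpr5, against 312, 264 and 229 CPM in cpr5 (log2 fold change -1.18, SE 0.232, adjusted p = 0.00561). It had 138 and 90.0 CPM in xpo4-2 and 279.8, 303 and 201 CPM in wild type. The other WRKY gene to fall was WRKY44 (log2 fold change -1.83, adjusted p = 0.0181, and 0.0547 to 0.0622 without xpo4-2 cpr5 replicate 1 or cpr5 replicate 3), a call also lost with limma (adjusted p = 0.0606). Rises in the family numbered 10 without xpo4-2 cpr5 replicate 3 or cpr5 replicate 3 and 11 without cpr5 replicate 1 or 2.

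The W box was looked for in all promoters. In the 250 bases before the annotated start, TTGACC or TTGACT on either strand was found in 31.3% of the genes that rose at least 2-fold, 26.5% of those that fell at least 2-fold and 28.5% of the 21458 tested genes with such a window. The TGA core TGACG was found in 23%, 20.8% and 19.1% of the same sets.

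Of 40 cysteine-rich receptor-like kinases (CRK), a family of plasma membrane kinases induced by pathogens and SA, 12 rose and 2 fell. CRK36 had 75.7, 53.0 and 87.2 CPM in xpo4-2 cpr5, against 13.7, 5.64 and 10.6 CPM in cpr5 (log2 fold change 2.85, SE 0.301, adjusted p = 0.000221). CRK37 had 36.0, 31.2 and 29.4 CPM in xpo4-2 cpr5, against 3.84, 2.23 and 2.72 CPM in cpr5 (log2 fold change 3.46, SE 0.442, adjusted p = 0.000567). CRK13 had 123, 93.6 and 168 CPM in xpo4-2 cpr5, against 22.7, 17.2 and 10.6 CPM in cpr5 (log2 fold change 2.93, SE 0.425, adjusted p = 0.0011). The genotypes did not overlap in any of the 3. CRK39 (log2 fold change 2.397, adjusted p = 0.0019), CRK12 (log2 fold change 1.30, adjusted p = 0.0097) and CRK18 (log2 fold change 0.75, adjusted p = 0.00405) also rose. CRK42 fell, at 18.8, 19.1 and 17.41 CPM in xpo4-2 cpr5, against 41.8, 39.4 and 36.1 CPM in cpr5 (log2 fold change -1.08, SE 0.129, adjusted p = 0.000378). The other fall was CRK41 (log2 fold change -2.06, adjusted p = 0.0134, and 0.0524 to 0.0539 without xpo4-2 cpr5 replicate 3 or cpr5 replicate 1). Rises in the family numbered 6 without cpr5 replicate 2 and 7 without xpo4-2 cpr5 replicate 1 or 2 or cpr5 replicate 1 or 3. The wall-associated kinases WAK3 and WAK1, which sense pectin fragments, were 2 of 4 members that rose. WAK3 had 312, 226 and 217 CPM in xpo4-2 cpr5, against 43.6, 20.8 and 29.6 CPM in cpr5 (log2 fold change 3.01, SE 0.708, adjusted p = 0.0132). WAK1 had 1044, 1006 and 810.2 CPM in xpo4-2 cpr5, against 559, 413 and 412 CPM in cpr5 (log2 fold change 1.05, SE 0.247, adjusted p = 0.0133). The adjusted p of WAK3 was 0.053 to 0.0648 without cpr5 replicate 2 or 3, and that of WAK1 was 0.0549 to 0.0598 without cpr5 replicate 2 or 3.

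Among ion channels CNGC19 rose and CNGC2 fell. Of 36 glutamate receptor-like and cyclic nucleotide-gated channels 3 rose and 1 fell (8.33% and 2.78%, beside 8.82% and 12.9% of all tested genes). CNGC19 had 57.0, 44.6 and 39.4 CPM in xpo4-2 cpr5, against 19.9, 16.0 and 14.3 CPM in cpr5 (log2 fold change 1.49, SE 0.202, adjusted p = 0.000771). The other rises were CNGC17 (log2 fold change 0.62, adjusted p = 0.0281, and 0.0517 to 0.0977 without xpo4-2 cpr5 replicate 1 or 3 or cpr5 replicate 1, 2 or 3) and GLR2.7 (log2 fold change 0.92, adjusted p = 0.033, and 0.0612 to 0.125 without xpo4-2 cpr5 replicate 1 or 2 or cpr5 replicate 1, 2 or 3). CNGC2, also called DND1, is a calcium channel whose loss activates SA defence, and it had 38.2, 44.9 and 54.6 CPM in xpo4-2 cpr5, against 194, 147 and 169 CPM in cpr5 (log2 fold change -1.89, SE 0.188, adjusted p = 0.000176). It had 216 and 183 CPM in xpo4-2 and 404, 507 and 343 CPM in wild type. Of 14 calmodulin-like proteins, which sense calcium, 2 rose and 3 fell (14.3% and 21.4%), beside 8.82% and 12.9% of all tested genes. Their balance varied with the setting, since without scaling 3 rose and 3 fell, and with limma on log2(TPM + 0.5) 4 rose and 2 fell. The members included CML41 (log2 fold change 1.45, adjusted p = 0.00467) higher and CML12 (log2 fold change -0.73, adjusted p = 0.00307), CML38 (log2 fold change -1.38, adjusted p = 0.00404) and CML9 (log2 fold change -1.06, adjusted p = 0.00542) lower, and the call of CML12 was lost with limma (adjusted p = 0.0875). The other rise was CML23 (log2 fold change 1.32, adjusted p = 0.0372, and 0.06 to 0.121 without xpo4-2 cpr5 replicate 1 or 2 or cpr5 replicate 1, 2 or 3). Channels that rose numbered 1 without xpo4-2 cpr5 replicate 1 or cpr5 replicate 1 or 2, but 6 without scaling and 10 with limma on log2(TPM + 0.5).

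Protein folding in the endoplasmic reticulum (ER), which handles secreted defence proteins, showed modest rises. Of 20 ER chaperones and quality control genes 10 rose (median log2 fold change 0.53), and 0 fell with edgeR (0 at an unadjusted p under 0.05, 0 with DESeq2 and 0 with limma). PDIL1-2 had 144, 117 and 97.1 CPM in xpo4-2 cpr5, against 45.7, 42.9 and 48.4 CPM in cpr5 (log2 fold change 1.39, SE 0.187, adjusted p = 0.000739). PDIL1-1 had 235, 239.9 and 193 CPM in xpo4-2 cpr5, against 118, 119 and 132 CPM in cpr5 (log2 fold change 0.86, SE 0.127, adjusted p = 0.00123). Both encode protein disulphide isomerases, and their genotypes did not overlap. BIP2 (log2 fold change 0.97, adjusted p = 0.00729), BIP1 (log2 fold change 0.81, adjusted p = 0.00747), SHD (log2 fold change 0.78, adjusted p = 0.0043), PDIL2-1 (log2 fold change 0.66, adjusted p = 0.00367), ERDJ3B (log2 fold change 0.62, adjusted p = 0.00655) and UGGT (log2 fold change 0.55, adjusted p = 0.00802) also rose and kept their call whichever library was left out. BIP1 and BIP2 are HSP70 chaperones of the ER, SHD is the HSP90 and UGGT checks glycoprotein folding. The unfolded protein sensors and their factors did not pass: BZIP60 (log2 fold change 0.05, adjusted p = 0.873), BZIP28 (log2 fold change 0.00, adjusted p = 0.99), IRE1A (log2 fold change -0.08, adjusted p = 0.647) and IRE1B (log2 fold change 0.30, adjusted p = 0.155).

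The ER stress response element (ERSE), CCAAT, then 10 bases of any kind and CACG, was present on either strand in 5 of 20 promoters (25%) of this list, and in 0.83% of all tested genes. It was present in 0.398% of the genes that rose at least 2-fold. Of the 5 genes that hold it, SHD, PDIL1-1, PDIL1-2 and UGGT rose, and BIP3 did not pass (log2 fold change 1.25, adjusted p = 0.443). The promoters of the disulphide isomerases are shown, 250 bases up to the start of the gene model, 5′ to 3′, from RefSeq (TAIR10.1), with the element in capitals.
PDIL1-2, chr1:29126398-29126647, plus strand: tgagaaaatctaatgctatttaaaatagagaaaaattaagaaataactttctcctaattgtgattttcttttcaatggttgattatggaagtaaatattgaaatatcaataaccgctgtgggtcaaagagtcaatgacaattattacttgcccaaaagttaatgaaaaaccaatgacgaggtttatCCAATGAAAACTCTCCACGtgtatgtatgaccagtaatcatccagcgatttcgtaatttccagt
PDIL1-1, chr1:7645360-7645609, plus strand: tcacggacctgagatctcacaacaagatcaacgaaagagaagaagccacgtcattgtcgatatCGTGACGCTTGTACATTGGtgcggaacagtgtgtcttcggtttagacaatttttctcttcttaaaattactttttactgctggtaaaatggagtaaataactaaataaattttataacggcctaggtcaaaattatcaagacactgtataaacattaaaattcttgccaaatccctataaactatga

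The copy in PDIL1-2 began 64 bases before the start and that in PDIL1-1 lay farther out, 187 bases before it and on the opposite strand. Autophagy genes, which recycle cell contents, also rose in part: 8 of 29 rose, and 0 fell with edgeR (3 at an unadjusted p under 0.05, 1 with DESeq2 and 0 with limma). ATG11 had 74.8, 68.3 and 75.8 CPM in xpo4-2 cpr5, against 28.1, 28.4 and 47.4 CPM in cpr5 (log2 fold change 1.08, SE 0.22, adjusted p = 0.00667). ATG13 (log2 fold change 0.54, adjusted p = 0.00831) and ATG18F (log2 fold change 0.75, adjusted p = 0.00966) rose too. ATG11 and ATG13 belong to the complex that starts autophagosome formation. Autophagy genes that rose numbered 3 without cpr5 replicate 2 and 5 without xpo4-2 cpr5 replicate 1 or 3 or cpr5 replicate 1 or 3.

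Genes of jasmonate fell, from synthesis to output. Of 17 genes of jasmonate synthesis 11 fell, with a median log2 fold change of -1.64, and 0 rose with edgeR (0 at an unadjusted p under 0.05, 0 with DESeq2 and 1 with limma). The enzymes are given in the order of the pathway. LOX3, a lipoxygenase, had 81.3, 93.1 and 45.8 CPM in xpo4-2 cpr5, against 629, 562 and 489.9 CPM in cpr5 (log2 fold change -2.93, SE 0.345, adjusted p = 0.000374). AOS, the allene oxide synthase, had 75.1, 70.0 and 80.8 CPM in xpo4-2 cpr5, against 578, 641 and 536 CPM in cpr5 (log2 fold change -2.96, SE 0.288, adjusted p = 0.000157). AOC1, an allene oxide cyclase, had 33.5, 32.7 and 38.1 CPM in xpo4-2 cpr5, against 304, 324 and 238 CPM in cpr5 (log2 fold change -3.05, SE 0.261, adjusted p = 0.000105). OPR3, which reduces the cyclic product, had 187, 215 and 103 CPM in xpo4-2 cpr5, against 1203, 1145 and 869 CPM in cpr5 (log2 fold change -2.67, SE 0.295, adjusted p = 0.000263). In these 4 genes every double-mutant library lay below every cpr5 library by a wide margin. LOX2 (log2 fold change -1.12, adjusted p = 0.0126), LOX4 (log2 fold change -1.91, adjusted p = 0.0017), AOC2 (log2 fold change -1.69, adjusted p = 0.000796), AOC3 (log2 fold change -1.20, adjusted p = 0.00898) and OPCL1 (log2 fold change -1.64, adjusted p = 0.00142) fell as well. JMT, which methylates jasmonate, was low in both genotypes, at 0.091, 0 and 0 CPM in xpo4-2 cpr5, against 1.07, 0.932 and 1.99 CPM in cpr5 (log2 fold change -5.18, SE 0.956, adjusted p = 0.00395). The steps of fatty acid shortening, ACX1 (log2 fold change 0.38, adjusted p = 0.219), ACX5 (log2 fold change 0.29, adjusted p = 0.426) and KAT2 (log2 fold change 0.12, adjusted p = 0.635), did not pass.

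Of 22 genes of jasmonate signalling and breakdown 13 fell and 2 rose. JAZ proteins repress jasmonate responses and are themselves induced by the hormone. JAZ9 had 138, 158 and 93.4 CPM in xpo4-2 cpr5, against 535, 536 and 459 CPM in cpr5 (log2 fold change -1.97, SE 0.253, adjusted p = 0.000569). JAZ7 (log2 fold change -1.68, adjusted p = 0.00651), JAZ10 (log2 fold change -1.38, adjusted p = 0.00683) and JAZ12 (log2 fold change -0.62, adjusted p = 0.0039) fell too. CYP94B1, which oxidises the active conjugate, had 9.29, 6.19 and 8.44 CPM in xpo4-2 cpr5, against 45.8, 53.6 and 57.8 CPM in cpr5 (log2 fold change -2.71, SE 0.265, adjusted p = 0.000161). The amidohydrolases ILL6 (log2 fold change -1.76, adjusted p = 0.000118) and IAR3 (log2 fold change -0.87, adjusted p = 0.00605) were lower, whereas the receptor COI1 rose, at 35.9, 38.4 and 39.8 CPM in xpo4-2 cpr5, against 26.5, 21.6 and 24.3 CPM in cpr5 (log2 fold change 0.66, SE 0.135, adjusted p = 0.00686). The other rise was MYC3 (log2 fold change 0.87, adjusted p = 0.0242, and 0.0532 to 0.0909 without xpo4-2 cpr5 replicate 1 or 2 or cpr5 replicate 1 or 3), a transcription factor of the response. Falls in the signalling list numbered 7 without cpr5 replicate 2. Of 14 output genes 8 fell, and 0 rose with edgeR (0 at an unadjusted p under 0.05, 0 with DESeq2 and 1 with limma). VSP2 had 7.97, 10.14 and 10.7 CPM in xpo4-2 cpr5, against 240.3, 251 and 205 CPM in cpr5 (log2 fold change -4.60, SE 0.301, adjusted p = 4.06e-05). VSP1 had 12.7, 10.4 and 11.8 CPM in xpo4-2 cpr5, against 86.5, 110.4 and 91.3 CPM in cpr5 (log2 fold change -3.04, SE 0.235, adjusted p = 7.24e-05). These are storage proteins of leaves. CYP82G1, which makes a volatile homoterpene, had 0.91, 2.03 and 0.893 CPM in xpo4-2 cpr5, against 62.5, 63.4 and 47.0 CPM in cpr5 (log2 fold change -5.51, SE 0.58, adjusted p = 0.00022). TPS04 (log2 fold change -2.38, adjusted p = 0.00412), CORI3 (log2 fold change -2.28, adjusted p = 0.00035) and CLH1 (log2 fold change -2.30, adjusted p = 0.00115) fell with it.

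The fall in jasmonate genes was seen in both backgrounds. In xpo4-2 against wild type 5 of the 17 synthesis genes, 14 of the 22 signalling genes and 7 of the 14 outputs fell, where 1.96% of all genes did. AOS had 460.1 and 330.0 CPM in xpo4-2 and 1117, 1563 and 633 CPM in wild type, and VSP2 had 69.8 and 56.1 CPM in xpo4-2 and 383, 303 and 164 CPM in wild type. The effect of xpo4-2 differed between cpr5 and wild type, with an adjusted p under 0.05, for 3 jasmonate genes that fell more in cpr5, namely AOS, JMT and VSP2, beside 5.51% of all tested genes. In no signalling gene did a more negative effect in cpr5 pass that threshold. A p that misses the threshold does not show that the remaining effects were equal.

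Aliphatic glucosinolates, sulphur-containing defence compounds made from methionine, had lower transcript levels along their pathway. Of 16 genes 10 fell and 1 rose, SOT17 (log2 fold change 0.43, adjusted p = 0.0462, and 0.0769 to 0.153 without xpo4-2 cpr5 replicate 1 or 2 or cpr5 replicate 1, 2 or 3), and the median log2 fold change was -1.11. MYB29, a regulator of the pathway, had 0.91, 0.913 and 0.568 CPM in xpo4-2 cpr5, against 9.28, 11.4 and 8.82 CPM in cpr5 (log2 fold change -3.62, SE 0.398, adjusted p = 0.000258). CYP79F1, which forms the aldoxime, had 14.0, 15.3 and 7.71 CPM in xpo4-2 cpr5, against 75.7, 94.4 and 93.1 CPM in cpr5 (log2 fold change -2.83, SE 0.242, adjusted p = 0.000105). The gap between genotypes exceeded the spread within them in both. BCAT4, which opens chain elongation, had 46.9, 48.3 and 28.6 CPM in xpo4-2 cpr5, against 169, 179 and 169 CPM in cpr5 (log2 fold change -2.06, SE 0.186, adjusted p = 0.000122). MAM1 (log2 fold change -1.92, adjusted p = 0.000124), CYP83A1 (log2 fold change -1.77, adjusted p = 0.000262), IPMI2 (log2 fold change -1.24, adjusted p = 0.00904) and IMD1 (log2 fold change -1.28, adjusted p = 0.00806) fell too. In 9 of these 16 genes the effect of xpo4-2 was more negative in cpr5 than in wild type, beside 5.51% of all tested genes. CYP79F1 had 96.5 and 113 CPM in xpo4-2 and 101.5, 99.7 and 76.2 CPM in wild type.

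The counts for indole glucosinolates and camalexin depended on the scaling. Of 21 genes 10 fell and 2 rose, but without scaling 4 rose and 4 fell, and with limma on log2(TPM + 0.5) 6 rose and 3 fell. Falls numbered 4 without cpr5 replicate 1, 2 or 3, 5 without xpo4-2 cpr5 replicate 1 and 6 without xpo4-2 cpr5 replicate 2 or 3. Lower members whose calls held were CYP79B3 (log2 fold change -1.01, adjusted p = 0.00305), GGP1 (log2 fold change -1.05, adjusted p = 0.00266) and IGMT2 (log2 fold change -2.28, adjusted p = 0.00297), and the higher one was MYB51 (log2 fold change 0.93, adjusted p = 0.00305). The other rise was CYP71A12 (log2 fold change 2.49, adjusted p = 0.0355, and 0.0605 to 0.119 without xpo4-2 cpr5 replicate 1, 2 or 3 or cpr5 replicate 1, 2 or 3). IGMT2 methylates indole glucosinolates and had 5.05, 2.54 and 7.59 CPM in xpo4-2 cpr5, against 22.4, 23.8 and 27.7 CPM in cpr5, while MYB51 activates their synthesis and had 188, 175 and 235 CPM in xpo4-2 cpr5, against 111, 96.9 and 107 CPM in cpr5. Of 40 glutathione transferases 10 fell and 3 rose (25% and 7.5%, beside 12.9% and 8.82% of all tested genes). GSTU5 had 156, 160.5 and 73.1 CPM in xpo4-2 cpr5, against 906, 1060.5 and 773 CPM in cpr5 (log2 fold change -2.81, SE 0.304, adjusted p = 0.000244). GSTU20 had 59.6, 60.3 and 28.1 CPM in xpo4-2 cpr5, against 225, 256 and 217 CPM in cpr5 (log2 fold change -2.24, SE 0.26, adjusted p = 0.00035), with each double-mutant library below each cpr5 library in both genes. GSTU13 (log2 fold change -1.65, adjusted p = 4.06e-05), GSTU18 (log2 fold change -2.20, adjusted p = 0.000614), GSTF8 (log2 fold change -1.39, adjusted p = 0.00153), GSTF14 (log2 fold change -2.99, adjusted p = 0.00286), GSTF11 (log2 fold change -3.35, adjusted p = 0.012) and GSTU6 (log2 fold change -1.30, adjusted p = 0.00152) fell too. GSTU27 (log2 fold change 0.92, adjusted p = 0.00552) rose, and so did GSTF3 (log2 fold change 2.08, adjusted p = 0.0179, and 0.0529 to 0.0758 without xpo4-2 cpr5 replicate 1 or cpr5 replicate 1 or 2) and GSTU10 (log2 fold change 2.06, adjusted p = 0.02, and 0.0629 to 0.077 without xpo4-2 cpr5 replicate 1 or cpr5 replicate 1, 2 or 3). In the flavonoid list 5 of 17 fell and 0 rose with edgeR (0 at an unadjusted p under 0.05, 0 with DESeq2 and 1 with limma), with DFR, a reductase of anthocyanin synthesis, at 0.319, 0.456 and 1.38 CPM in xpo4-2 cpr5, against 5.28, 4.66 and 4.29 CPM in cpr5 (log2 fold change -2.70, SE 0.63, adjusted p = 0.0127). LDOX (log2 fold change -2.38, adjusted p = 0.0285, and 0.062 to 0.0804 without xpo4-2 cpr5 replicate 1 or 3 or cpr5 replicate 1, 2 or 3) and UGT78D1 (log2 fold change -0.83, adjusted p = 0.0297, and 0.0644 to 0.109 without xpo4-2 cpr5 replicate 1 or 3 or cpr5 replicate 2 or 3) also fell, the call of UGT78D1 being also lost without scaling and with limma, and falls numbered 1 without xpo4-2 cpr5 replicate 3 or cpr5 replicate 2 or 3 and 2 without xpo4-2 cpr5 replicate 1 or cpr5 replicate 1.

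**Figure D4:**
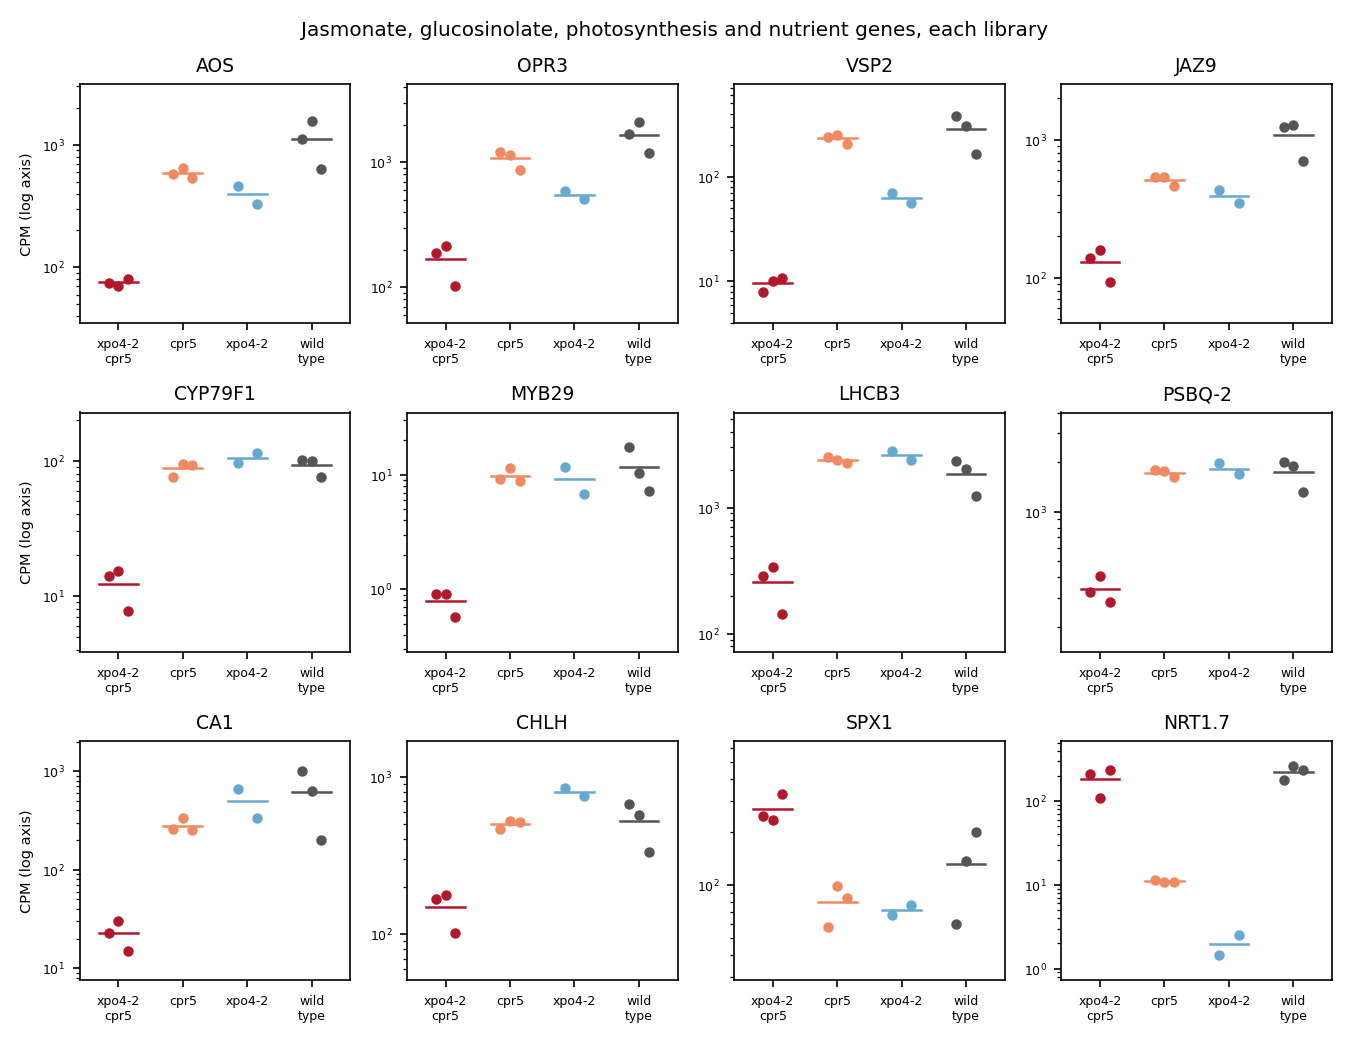
CPM on a log axis in each library (points) with the group mean (line) for jasmonate, glucosinolate, photosynthesis, chlorophyll, phosphate and nitrate genes, with xpo4-2 cpr5 at the left, then cpr5, xpo4-2 and wild type. The double-mutant libraries lie below all other libraries in each panel except SPX1, where they lie above, and NRT1.7, where they lie at 211, 109 and 233 CPM, above cpr5 and xpo4-2.

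Nuclear genes of photosynthesis fell almost without exception. Of 50 genes of the photosystems, antenna and electron transport 46 fell, with a median log2 fold change of -1.81, and 0 rose with edgeR (0 at an unadjusted p under 0.05, 0 with DESeq2 and 0 with limma). All 50 had their double-mutant libraries below those of cpr5, as did 24% of all tested genes. LHCB1.4 had 141, 172 and 109.9 CPM in xpo4-2 cpr5, against 2525, 2292 and 2178 CPM in cpr5 (log2 fold change -4.05, SE 0.42, adjusted p = 0.000209). LHCB3 had 289, 337 and 144 CPM in xpo4-2 cpr5, against 2535, 2402 and 2263 CPM in cpr5 (log2 fold change -3.23, SE 0.324, adjusted p = 0.000185). Both encode proteins of the light-harvesting complex of photosystem II. PSBQ-2 had 327, 408 and 281 CPM in xpo4-2 cpr5, against 1796, 1760.1 and 1618 CPM in cpr5 (log2 fold change -2.35, SE 0.195, adjusted p = 9.41e-05). PSBQ-1 had 373, 402 and 296 CPM in xpo4-2 cpr5, against 1138, 1203 and 1099.9 CPM in cpr5 (log2 fold change -1.68, SE 0.139, adjusted p = 9.31e-05). They form part of the oxygen-evolving complex. PSAH-1, a subunit of photosystem I, had 251, 285 and 223 CPM in xpo4-2 cpr5, against 920.3, 866 and 827 CPM in cpr5 (log2 fold change -1.78, SE 0.141, adjusted p = 7.28e-05). Replicate 3 of the double mutant was lowest in LHCB3 and in both PSBQ genes. Antenna genes had log2 fold changes of -4.05 to -0.27, and the 4 genes that did not pass were LHCB4.3, PSBY, DRT112, a plastocyanin, and FD1, a ferredoxin.

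The G box, CACGTG, was present in 10 of 50 promoters (20%) of this list, in 11.1% of the genes that fell at least 2-fold, in 4.78% of those that rose at least 2-fold and in 7.15% of all tested genes. The promoters of both PSBQ genes, from RefSeq (TAIR10.1) as above, each hold 2 copies, in capitals.
PSBQ-1, chr4:11334102-11334351, plus strand: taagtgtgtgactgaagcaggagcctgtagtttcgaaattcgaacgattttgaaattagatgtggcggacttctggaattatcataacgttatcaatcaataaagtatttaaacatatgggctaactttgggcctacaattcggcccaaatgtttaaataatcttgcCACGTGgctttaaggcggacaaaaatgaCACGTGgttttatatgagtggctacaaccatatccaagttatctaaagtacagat
PSBQ-2, chr4:2673244-2673493, minus strand: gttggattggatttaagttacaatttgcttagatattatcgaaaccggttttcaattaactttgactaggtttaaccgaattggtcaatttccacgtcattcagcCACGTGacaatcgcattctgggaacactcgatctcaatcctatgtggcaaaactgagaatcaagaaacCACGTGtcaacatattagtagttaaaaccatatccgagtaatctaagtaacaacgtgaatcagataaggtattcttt

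Carbon fixation fell with the light reactions. All 26 genes of the Rubisco small subunits, Calvin cycle and photorespiration fell (median -1.49). RBCS3B had 1482, 1599.9 and 1235 CPM in xpo4-2 cpr5, against 4886, 5232 and 4349 CPM in cpr5 (log2 fold change -1.75, SE 0.185, adjusted p = 0.000232). RBCS1A had 3063, 3560.3 and 2605 CPM in xpo4-2 cpr5, against 8064, 8623 and 7531 CPM in cpr5 (log2 fold change -1.39, SE 0.181, adjusted p = 0.000617). Both encode small subunits of Rubisco. PGK1 (log2 fold change -1.49, adjusted p = 0.000176), GLDP1 (log2 fold change -1.61, adjusted p = 0.00019) and SBPASE (log2 fold change -1.50, adjusted p = 0.000286) fell as well. CA1, a carbonic anhydrase, had 22.7, 30.0 and 15.1 CPM in xpo4-2 cpr5, against 256, 332 and 252 CPM in cpr5 (log2 fold change -3.63, SE 0.537, adjusted p = 0.00121). SHM1, which works in photorespiration, had 328, 352 and 274 CPM in xpo4-2 cpr5, against 961, 1113 and 1056 CPM in cpr5 (log2 fold change -1.71, SE 0.169, adjusted p = 0.00017). No double-mutant library reached the level of a cpr5 library in any of them. Of 22 genes of chlorophyll synthesis 19 fell, or 12 without scaling, and 0 rose with edgeR (0 at an unadjusted p under 0.05, 0 with DESeq2 and 0 with limma). CHLH, a subunit of magnesium chelatase, had 167, 177 and 102 CPM in xpo4-2 cpr5, against 465, 522 and 518 CPM in cpr5 (log2 fold change -1.75, SE 0.264, adjusted p = 0.00133). CHLD (log2 fold change -0.81, adjusted p = 0.00077), CHLM (log2 fold change -1.30, adjusted p = 0.000909), CRD1 (log2 fold change -1.32, adjusted p = 0.0026), DVR (log2 fold change -1.37, adjusted p = 0.000824), HEMA1 (log2 fold change -0.96, adjusted p = 0.00651), PORB (log2 fold change -1.23, adjusted p = 0.00787) and PORC (log2 fold change -1.42, adjusted p = 0.0052) fell. Falls in this list numbered 12 without cpr5 replicate 2. Regulators of plastid development are a list of their own. Of 12 genes 2 fell, GLK1 and SIG2, and 1 rose, GNC (16.7% and 8.33%, beside 12.9% and 8.82% of all tested genes). GLK1, an activator of these genes, had 23.3, 25.6 and 28.2 CPM in xpo4-2 cpr5, against 37.1, 44.6 and 42.0 CPM in cpr5 (log2 fold change -0.68, SE 0.126, adjusted p = 0.00392). The others were SIG2 (log2 fold change -0.44, adjusted p = 0.0444, and 0.0731 to 0.125 without xpo4-2 cpr5 replicate 1, 2 or 3 or cpr5 replicate 1, 2 or 3) and GNC (log2 fold change 1.66, adjusted p = 0.0265, and 0.0564 to 0.104 without xpo4-2 cpr5 replicate 1 or 3 or cpr5 replicate 1 or 2). The call of GLK1 was lost with limma on log2(TPM + 0.5), at a log2 fold change of -0.32 (adjusted p = 0.093), and that of SIG2 without scaling (adjusted p = 0.292) and with limma (adjusted p = 0.564). The balance of this list turned with the scaling, since without scaling 4 rose and 1 fell, and with limma on log2(TPM + 0.5) 4 rose and 0 fell.

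The photosynthesis genes differed between backgrounds: the effect of xpo4-2 was more negative in cpr5 than in wild type for 43 of 50 photosystem genes, 25 of 26 carbon fixation genes and 14 of 22 chlorophyll genes, beside 5.51% of all tested genes. LHCB3 had 2838 and 2392 CPM in xpo4-2 and 2329, 2009 and 1236 CPM in wild type. All 8 markers of leaf mesophyll fell, and all are members of these lists. Their summed level ran over 6158 to 9143 CPM in xpo4-2 cpr5, against 27619 to 30241 CPM in cpr5, and none was at 0. The summed level of 12 markers of root and root hair ran the other way, at 135 to 191 CPM in xpo4-2 cpr5, against 53.0 to 66.0 CPM in cpr5. Of these 12, 2 rose (16.7%, beside 8.82% of all tested genes), and 0 fell with edgeR (0 at an unadjusted p under 0.05, 0 with DESeq2 and 0 with limma). The rises were PRP3 (log2 fold change 2.29, adjusted p = 0.027, and 0.0504 to 0.0963 without xpo4-2 cpr5 replicate 1 or 2 or cpr5 replicate 1, 2 or 3) and SCR (log2 fold change 0.48, adjusted p = 0.0275, and 0.0519 to 0.102 without xpo4-2 cpr5 replicate 1 or 3 or cpr5 replicate 1, 2 or 3). Rises in this list numbered 0 without xpo4-2 cpr5 replicate 1 or cpr5 replicate 1, 2 or 3. PRP3 encodes a cell wall protein of root hairs and SCR a regulator of the endodermis. In whole seedlings fewer cells of a type and less RNA per cell cannot be told apart, and the part of a change in the ratio of shoot to root in these results was not tested.

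The other marker lists varied in how many members passed. Of 8 tested trichome markers 3 fell (37.5%, beside 12.9% of all tested genes), with TRY, an inhibitor of trichome fate, at 0.091, 0.101 and 0.284 CPM in xpo4-2 cpr5, against 1.01, 1.24 and 1.63 CPM in cpr5 (log2 fold change -2.96, SE 0.664, adjusted p = 0.0106). MYB106 had 0.865, 0.608 and 0.852 CPM in xpo4-2 cpr5, against 3.25, 4.40 and 5.62 CPM in cpr5 (log2 fold change -2.50, SE 0.559, adjusted p = 0.0103). The other was GL2 (log2 fold change -1.01, adjusted p = 0.0216, and 0.0505 to 0.0732 without xpo4-2 cpr5 replicate 2 or 3 or cpr5 replicate 1, 2 or 3), whose call was also lost without scaling and with limma. The summed trichome markers ran over 57.4 to 60.9 CPM in xpo4-2 cpr5, against 71.8 to 73.7 CPM in cpr5. Of 12 stomatal and guard cell markers 1 rose, KAT1 (log2 fold change 0.52, adjusted p = 0.0485, and 0.0948 to 0.169 without xpo4-2 cpr5 replicate 2 or 3 or cpr5 replicate 1 or 2), where 8.82% of all tested genes did. The sum was 90.6 to 115 CPM in xpo4-2 cpr5, against 78.9 to 86.0 CPM in cpr5. Of 10 vascular markers 1 fell (10%, beside 12.9% of all tested genes), SUC2 (log2 fold change -0.56, adjusted p = 0.045, and 0.114 to 0.156 without xpo4-2 cpr5 replicate 1 or 2 or cpr5 replicate 2 or 3), a call also lost without scaling and with limma. The vascular sum was 187 to 271 CPM in xpo4-2 cpr5, against 256 to 362 CPM in cpr5. Of the seed markers SESA1, a storage albumin, was the only one tested, at 0.182, 0.203 and 0.487 CPM in xpo4-2 cpr5, against 8.004, 7.82 and 8.16 CPM in cpr5 (log2 fold change -4.71, SE 0.465, adjusted p = 0.00017). The measured seed markers summed to 0.203 to 0.528 CPM in xpo4-2 cpr5, against 8.06 to 8.22 CPM in cpr5. Both measured meristem markers, STM and KNAT1, did not pass (-0.98 and 0.03 on the log2 scale), and their sum was 4.55 to 7.50 CPM in xpo4-2 cpr5, against 7.19 to 9.47 CPM in cpr5. Markers of root, guard cell, vein and mesophyll were all detected in both genotypes.

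Genes of growth by cell division and by water uptake were lower in part. Of 22 genes of the G2 and M phases 9 fell (median log2 fold change -0.70), and 0 rose with edgeR (0 at an unadjusted p under 0.05, 0 with DESeq2 and 0 with limma). KNOLLE, the syntaxin of the cell plate, had 25.2, 22.6 and 18.18 CPM in xpo4-2 cpr5, against 34.0, 40.8 and 38.2 CPM in cpr5 (log2 fold change -0.78, SE 0.175, adjusted p = 0.0106). CDKB2;1, a mitotic kinase, had 11.9, 8.72 and 10.3 CPM in xpo4-2 cpr5, against 16.6, 18.1 and 17.398 CPM in cpr5 (log2 fold change -0.75, SE 0.166, adjusted p = 0.00968). Both gaps exceeded the spread, and both calls held whichever library was left out, but the call of KNOLLE was lost with limma on log2(TPM + 0.1) (adjusted p = 0.0509) and that of CDKB2;1 with limma on log2(TPM + 0.5) (adjusted p = 0.0802). CDKB1;1 (log2 fold change -0.93, adjusted p = 0.0179, and 0.0552 to 0.075 without xpo4-2 cpr5 replicate 3 or cpr5 replicate 2) fell too. The number of falls was 5 without scaling, 1 with limma on log2(TPM + 0.5), and 2 without cpr5 replicate 2, 3 without xpo4-2 cpr5 replicate 3 and 5 without cpr5 replicate 1 or 3. Of 21 DNA replication genes 1 rose, RNR1 (log2 fold change 0.40, adjusted p = 0.0264, and 0.076 to 0.105 without xpo4-2 cpr5 replicate 1 or 2 or cpr5 replicate 1 or 2), and 0 fell with edgeR (0 at an unadjusted p under 0.05, 0 with DESeq2 and 0 with limma), with a median log2 fold change of 0.15. Of 12 cell cycle inhibitors KRP1 rose, at 13.8, 22.9 and 17.5 CPM in xpo4-2 cpr5, against 5.71, 7.71 and 6.40 CPM in cpr5 (log2 fold change 1.45, SE 0.292, adjusted p = 0.00628). KRP4 (log2 fold change 0.78, adjusted p = 0.0176, and 0.0566 to 0.0695 without xpo4-2 cpr5 replicate 3 or cpr5 replicate 1 or 2) rose as well, and SMR1 (log2 fold change -0.46, adjusted p = 0.0456, and 0.0546 to 0.163 without xpo4-2 cpr5 replicate 1, 2 or 3 or cpr5 replicate 1, 2 or 3) fell, a call also lost without scaling and with limma.

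The core of the MSA element, AACGG, which binds MYB factors of mitotic genes, was present in 13 of 22 promoters (59.1%) of the G2 and M list and in 21.4% of all tested genes. The share was 20.4% among the genes that fell at least 2-fold. The promoter of KNOLLE, from RefSeq (TAIR10.1) as above, is shown with its copy in capitals.
KNOLLE, chr1:2711001-2711250, minus strand: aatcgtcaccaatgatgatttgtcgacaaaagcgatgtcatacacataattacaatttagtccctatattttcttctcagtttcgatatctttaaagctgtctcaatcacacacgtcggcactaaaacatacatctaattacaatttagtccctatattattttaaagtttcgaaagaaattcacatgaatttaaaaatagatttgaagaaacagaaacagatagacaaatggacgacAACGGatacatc

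Aquaporins, the water channels of the plasma membrane (PIP) and vacuole (TIP), fell in large part: 13 of 19 fell (median log2 fold change -0.81), and 0 rose with edgeR (0 at an unadjusted p under 0.05, 0 with DESeq2 and 0 with limma). PIP2;3 had 12.4, 10.4 and 14.0 CPM in xpo4-2 cpr5, against 70.1, 82.9 and 73.7 CPM in cpr5 (log2 fold change -2.62, SE 0.169, adjusted p = 4.06e-05). TIP1;1 had 172, 144 and 151 CPM in xpo4-2 cpr5, against 359, 444 and 411 CPM in cpr5 (log2 fold change -1.38, SE 0.158, adjusted p = 0.000329). TIP2;1 had 254, 225 and 212 CPM in xpo4-2 cpr5, against 547, 529 and 633 CPM in cpr5 (log2 fold change -1.31, SE 0.164, adjusted p = 0.000498). All 3 separated the genotypes. PIP2A (log2 fold change -2.18, adjusted p = 0.000254), TIP2;2 (log2 fold change -1.86, adjusted p = 0.00259) and PIP1;5 (log2 fold change -0.85, adjusted p = 0.00059) fell too, and in 12 of the 19 aquaporins the effect of xpo4-2 was more negative in cpr5 than in wild type, beside 5.51% of all tested genes. Falls numbered 8 with limma on log2(TPM + 0.5). Of 26 Aux/IAA repressors of auxin response 8 fell, and 0 rose with edgeR (1 at an unadjusted p under 0.05, 1 with DESeq2 and 2 with limma). They included IAA6 (log2 fold change -4.95, adjusted p = 0.00213), IAA19 (log2 fold change -1.50, adjusted p = 0.00106), IAA3 (log2 fold change -1.40, adjusted p = 0.00163), IAA8 (log2 fold change -1.06, adjusted p = 0.00155) and IAA16 (log2 fold change -0.75, adjusted p = 0.00412), and falls numbered 5 without cpr5 replicate 1. IAA6 had 0.228, 0 and 0 CPM in xpo4-2 cpr5, against 2.72, 2.33 and 2.54 CPM in cpr5. Of 60 SAUR genes, which promote expansion, 11 fell and 2 rose (18.3% and 3.33%, beside 12.9% and 8.82% of all tested genes). The falls were led by SAUR62 (log2 fold change -1.86, adjusted p = 0.00267), SAUR34 (log2 fold change -2.50, adjusted p = 0.00405), SAUR79 (log2 fold change -1.02, adjusted p = 0.0041), SAUR27 (log2 fold change -2.16, adjusted p = 0.00735) and SAUR48 (log2 fold change -2.72, adjusted p = 0.00827). The rises were SAUR55 (log2 fold change 1.60, adjusted p = 0.0356, and 0.0566 to 0.117 without xpo4-2 cpr5 replicate 1, 2 or 3 or cpr5 replicate 1, 2 or 3) and SAUR5 (log2 fold change 1.23, adjusted p = 0.0485, and 0.131 to 0.163 without xpo4-2 cpr5 replicate 2 or 3 or cpr5 replicate 2 or 3). SAUR genes that fell numbered 6 without xpo4-2 cpr5 replicate 3 or cpr5 replicate 1 and 7 without cpr5 replicate 2.

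Wall-loosening genes were mixed. Of 18 alpha-expansins 5 rose and 1 fell, with EXPA14 at 5.19, 3.65 and 3.77 CPM in xpo4-2 cpr5, against 0.907, 1.501 and 1.03 CPM in cpr5 (log2 fold change 1.87, SE 0.382, adjusted p = 0.00663). The fall was that of EXPA5, at 4.96, 6.08 and 5.36 CPM in xpo4-2 cpr5, against 18.4, 12.5 and 13.4 CPM in cpr5 (log2 fold change -1.43, SE 0.259, adjusted p = 0.00359). EXPA10 (log2 fold change 0.93, adjusted p = 0.0161, and 0.0511 to 0.0581 without cpr5 replicate 1, 2 or 3) and EXPA4 (log2 fold change 0.73, adjusted p = 0.0182, and 0.0518 to 0.0727 without xpo4-2 cpr5 replicate 1 or 3 or cpr5 replicate 1 or 3) rose too, and expansins that rose numbered 1 without cpr5 replicate 1, 2 without xpo4-2 cpr5 replicate 3 or cpr5 replicate 2 or 3 and 3 without xpo4-2 cpr5 replicate 1. Of 30 xyloglucan endotransglucosylase/hydrolases (XTH), which cut and rejoin xyloglucan, 3 rose and 7 fell (10% and 23.3%, beside 8.82% and 12.9% of all tested genes). XTH10 had 30.7, 22.4 and 27.8 CPM in xpo4-2 cpr5, against 5.23, 4.25 and 6.22 CPM in cpr5 (log2 fold change 2.37, SE 0.325, adjusted p = 0.000802). XTH6 (log2 fold change -1.56, adjusted p = 0.000374), XTH16 (log2 fold change -1.26, adjusted p = 0.00644) and XTH8 (log2 fold change -0.76, adjusted p = 0.0113) fell, but the call of XTH8 was lost without scaling, at a log2 fold change of -0.504 (adjusted p = 0.0588), and with limma (adjusted p = 0.0837). The other rises were XTH14 (log2 fold change 2.35, adjusted p = 0.0171, and 0.0504 to 0.065 without xpo4-2 cpr5 replicate 1 or cpr5 replicate 1, 2 or 3) and XTH11 (log2 fold change 1.503, adjusted p = 0.04, and 0.0754 to 0.148 without xpo4-2 cpr5 replicate 1 or 3 or cpr5 replicate 1, 2 or 3). Falls numbered 4 without xpo4-2 cpr5 replicate 3 or cpr5 replicate 2 or 3, and without scaling 4 rose and 4 fell, and with limma on log2(TPM + 0.5) 7 rose and 5 fell.

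Genes induced by phosphate starvation rose relative to cpr5, and this too differed between backgrounds. Of 23 genes 11 rose (median log2 fold change 1.4), and 0 fell with edgeR (0 at an unadjusted p under 0.05, 0 with DESeq2 and 0 with limma). SPX1, a phosphate sensor, had 248, 235 and 329.5 CPM in xpo4-2 cpr5, against 57.1, 98.7 and 84.6 CPM in cpr5 (log2 fold change 1.76, SE 0.366, adjusted p = 0.00733). AT4, a non-coding RNA that sequesters a microRNA of phosphate homeostasis, had 154, 175 and 105.5 CPM in xpo4-2 cpr5, against 25.2, 57.2 and 63.0 CPM in cpr5 (log2 fold change 1.58, SE 0.347, adjusted p = 0.00936). PLDP2, a phospholipase that frees phosphate from membranes, had 39.6, 43.8 and 31.4 CPM in xpo4-2 cpr5, against 8.22, 8.18 and 10.09 CPM in cpr5 (log2 fold change 2.12, SE 0.351, adjusted p = 0.0023). The double-mutant libraries were above those of cpr5 in each. PHT1;9 (log2 fold change 2.23, adjusted p = 0.0112) and PAP17 (log2 fold change 1.82, adjusted p = 0.0103), a transporter and an acid phosphatase, rose likewise. The effect of xpo4-2 was more positive in cpr5 than in wild type in 13 of the 23 genes, against 3.2% of all tested genes. AT4 had 56.8 and 71.0 CPM in xpo4-2 and 301, 421 and 581 CPM in wild type, so that wild type held the highest libraries. Summed over the list, the double mutant had 1430, 1307 and 1485 CPM, within the wild-type range of 916.6, 1404 and 2040 CPM. Both single mutants lay below that range, at 592.5 and 675.8 CPM in xpo4-2 and 544, 693.9 and 688.4 CPM in cpr5. Median log2 fold changes against wild type were -0.93 in xpo4-2 and -1.05 in cpr5. PHR1, the central regulator, did not pass (log2 fold change -0.15, adjusted p = 0.418). Rises in this list numbered 5 without cpr5 replicate 1, 6 without xpo4-2 cpr5 replicate 1 and 7 without cpr5 replicate 2 or 3.

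P1BS, the binding site of PHR1, GNATATNC, was present on either strand in 6 of 23 promoters (26.1%) of this list, in 8.23% of the genes that rose at least 2-fold and in 5.53% of all tested genes. The genes that hold it were AT4, PLDP2 and MGD2, which rose, and SPX3, PHT1;2 and PS2, which did not pass. The adjusted p of MGD2 was 0.0589 to 0.0606 without xpo4-2 cpr5 replicate 1 or cpr5 replicate 1 or 3. The promoters of AT4 and PLDP2, from RefSeq (TAIR10.1) as above, are shown with the element in capitals.
AT4, chr5:894332-894581, plus strand: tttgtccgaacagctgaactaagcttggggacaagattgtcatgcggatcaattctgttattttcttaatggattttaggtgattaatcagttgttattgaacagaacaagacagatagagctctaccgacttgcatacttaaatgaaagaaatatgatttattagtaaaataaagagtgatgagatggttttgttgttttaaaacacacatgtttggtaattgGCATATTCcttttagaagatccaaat
PLDP2, chr3:1634944-1635193, plus strand: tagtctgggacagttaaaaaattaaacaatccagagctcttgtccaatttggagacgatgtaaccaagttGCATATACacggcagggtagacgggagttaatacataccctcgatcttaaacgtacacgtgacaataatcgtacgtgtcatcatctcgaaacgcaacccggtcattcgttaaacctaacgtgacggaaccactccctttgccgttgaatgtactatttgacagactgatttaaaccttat

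Nitrogen and iron genes changed singly. Of 21 genes of nitrate transport and assimilation 3 rose and 4 fell (14.3% and 19%, beside 8.82% and 12.9% of all tested genes). Without scaling 5 rose and 3 fell, and with limma on log2(TPM + 0.5) 7 rose and 5 fell. NRT1.7, a transporter that loads nitrate into the phloem of old leaves, had 211, 109 and 233 CPM in xpo4-2 cpr5, against 11.3, 10.9 and 10.9 CPM in cpr5 (log2 fold change 4.06, SE 0.3, adjusted p = 6.02e-05). It had 1.45 and 2.49 CPM in xpo4-2 and 179.7, 261 and 233 CPM in wild type, so that the double mutant stood near wild type and both single mutants far below it. NIA1, a nitrate reductase, had 209.6, 203 and 518 CPM in xpo4-2 cpr5, against 67.7, 77.7 and 80.2 CPM in cpr5 (log2 fold change 2.04, SE 0.319, adjusted p = 0.00162). GLT1 (log2 fold change 0.83, adjusted p = 0.00637) rose, and NRT2.7 (log2 fold change -1.12, adjusted p = 0.00102), GLN2 (log2 fold change -1.08, adjusted p = 0.000686) and GLU1 (log2 fold change -0.92, adjusted p = 0.00394) fell, where GLN2 and GLU1 assimilate ammonium in the plastid. Of 23 iron genes 2 rose and 2 fell (8.7% each, beside 8.82% and 12.9% of all tested genes). Without scaling 3 rose and 1 fell, and with limma on log2(TPM + 0.5) 5 rose and 1 fell. YSL3, a metal-chelate transporter, had 339, 359.5 and 511 CPM in xpo4-2 cpr5, against 158, 142 and 153 CPM in cpr5 (log2 fold change 1.42, SE 0.21, adjusted p = 0.00123). OPT3 (log2 fold change 0.59, adjusted p = 0.0039) rose. NEET, an iron-sulphur protein of the plastid, had 1.73, 1.57 and 0.325 CPM in xpo4-2 cpr5, against 26.5, 31.4 and 24.8 CPM in cpr5 (log2 fold change -4.53, SE 0.457, adjusted p = 0.000188). The ferritin FER3 (log2 fold change -0.72, adjusted p = 0.0197, and 0.0612 to 0.0775 without xpo4-2 cpr5 replicate 3 or cpr5 replicate 1 or 3) was the other gene to fall, a call also lost without scaling and with limma.

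Cold-regulated genes fell. Of 18 cold and drought genes 6 fell, and 0 rose with edgeR (1 at an unadjusted p under 0.05, 1 with DESeq2 and 1 with limma). COR15A, which protects plastid membranes, had 2.91, 3.09 and 6.17 CPM in xpo4-2 cpr5, against 109, 70.7 and 70.1 CPM in cpr5 (log2 fold change -4.35, SE 0.478, adjusted p = 0.000258). KIN2 had 73.9, 111 and 182 CPM in xpo4-2 cpr5, against 1384, 874 and 802 CPM in cpr5 (log2 fold change -3.06, SE 0.37, adjusted p = 0.000423). COR15B (log2 fold change -3.43, adjusted p = 0.000279), KIN1 (log2 fold change -2.63, adjusted p = 0.00151) and ERD10 (log2 fold change -1.66, adjusted p = 0.000244) fell. No double-mutant library overlapped cpr5 in any of these. The CBF2 activator did not pass (log2 fold change -0.46, adjusted p = 0.642). The DRE core, CCGAC, was present in 6 of 18 promoters (33.3%) of this list, in 13.7% of the genes that fell at least 2-fold and in 12.7% of all tested genes. The promoter of COR15A, from RefSeq (TAIR10.1) as above, holds 2 copies, in capitals.
COR15A, chr2:17712331-17712580, minus strand: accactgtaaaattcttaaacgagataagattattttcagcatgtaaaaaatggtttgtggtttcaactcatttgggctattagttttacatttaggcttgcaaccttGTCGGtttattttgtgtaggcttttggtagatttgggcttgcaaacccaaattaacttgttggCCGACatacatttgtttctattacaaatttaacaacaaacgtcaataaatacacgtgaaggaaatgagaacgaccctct

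Heat shock, clock and senescence lists moved less evenly. Of 20 heat shock genes 5 fell and 1 rose (25% and 5%, beside 12.9% and 8.82% of all tested genes). HSFA2, a heat shock factor, had 17.8, 11.1 and 2.72 CPM in xpo4-2 cpr5, against 80.4, 80.3 and 84.6 CPM in cpr5 (log2 fold change -2.96, SE 0.522, adjusted p = 0.0031). HSFA3 (log2 fold change -1.54, adjusted p = 0.00218) fell. HSP70T-2 (log2 fold change -1.50, adjusted p = 0.0145, and 0.0515 without xpo4-2 cpr5 replicate 3) fell and HSP17.4 (log2 fold change 1.23, adjusted p = 0.0292, and 0.0584 to 0.0962 without xpo4-2 cpr5 replicate 1, 2 or 3 or cpr5 replicate 1, 2 or 3) rose. Heat shock genes that fell numbered 3 without xpo4-2 cpr5 replicate 2 or 3 or cpr5 replicate 1, 2 or 3. Of 18 clock genes 6 fell and 0 rose with edgeR (3 at an unadjusted p under 0.05, 1 with DESeq2 and 4 with limma), but without scaling 4 rose and 3 fell. PRR7 had 53.2, 50.5 and 53.2 CPM in xpo4-2 cpr5, against 137, 108 and 101.5 CPM in cpr5 (log2 fold change -1.14, SE 0.135, adjusted p = 0.000378). LNK2 had 9.29, 5.88 and 7.18 CPM in xpo4-2 cpr5, against 42.8, 34.9 and 40.4 CPM in cpr5 (log2 fold change -2.40, SE 0.268, adjusted p = 0.000279). The calls of both held in each alternative. CHE (log2 fold change -1.11, adjusted p = 0.0173, and 0.058 without cpr5 replicate 1) fell too, and clock genes that fell numbered 2 without cpr5 replicate 1 and 3 without cpr5 replicate 2 or 3. Of 18 senescence genes 6 rose and 2 fell (33.3% and 11.1%, beside 8.82% and 12.9% of all tested genes). ORE1, a NAC factor that promotes leaf senescence, had 122, 105.2 and 87.1 CPM in xpo4-2 cpr5, against 16.8, 10.6 and 19.3 CPM in cpr5 (log2 fold change 2.75, SE 0.502, adjusted p = 0.00375). NYE1, which starts chlorophyll breakdown, had 46.3, 42.3 and 48.6 CPM in xpo4-2 cpr5, against 22.1, 19.2 and 21.6 CPM in cpr5 (log2 fold change 1.13, SE 0.197, adjusted p = 0.00297). ORS1 (log2 fold change 1.46, adjusted p = 0.0126, and 0.0584 without cpr5 replicate 2) rose too, and NOL (log2 fold change -2.97, adjusted p = 0.019, and 0.0511 to 0.0551 without cpr5 replicate 1 or 2) and SAG113 (log2 fold change -1.22, adjusted p = 0.0432, and 0.0712 to 0.133 without xpo4-2 cpr5 replicate 1 or 3 or cpr5 replicate 1, 2 or 3) fell, the call of SAG113 being also lost without scaling and with limma. Senescence genes that rose numbered 2 without cpr5 replicate 2 and 3 without xpo4-2 cpr5 replicate 1 or 3 or cpr5 replicate 3.

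Of the transport machinery to which both mutated genes belong, the receptors passed in shares close to those of all tested genes. Of 19 nuclear transport receptors and Ran genes 2 rose and 3 fell (10.5% and 15.8%, beside 8.82% and 12.9%), the mutated XPO4 among the falls. Without scaling 6 rose and 1 fell, and with limma on log2(TPM + 0.5) 7 rose and 1 fell. HST, the exportin that serves microRNA biogenesis, had 26.9, 24.995 and 29.1 CPM in xpo4-2 cpr5, against 15.3, 17.8 and 18.5 CPM in cpr5 (log2 fold change 0.65, SE 0.139, adjusted p = 0.00819). PSD (log2 fold change 0.56, adjusted p = 0.034, and 0.0531 to 0.122 without xpo4-2 cpr5 replicate 1 or 3 or cpr5 replicate 1, 2 or 3), the exportin for tRNA, rose too. IMPA-6 (log2 fold change -0.81, adjusted p = 0.0453, and 0.0746 to 0.121 without xpo4-2 cpr5 replicate 2 or 3 or cpr5 replicate 1, 2 or 3) and CAS (log2 fold change -0.62, adjusted p = 0.0377, and 0.0555 to 0.116 without xpo4-2 cpr5 replicate 1, 2 or 3 or cpr5 replicate 1, 2 or 3) fell, calls also lost without scaling and with limma. Of 17 nucleoporins 6 rose, and 0 fell with edgeR (0 at an unadjusted p under 0.05, 0 with DESeq2 and 0 with limma). NUP96, a scaffold subunit whose loss weakens immunity, had 44.0, 42.4 and 46.3 CPM in xpo4-2 cpr5, against 29.2, 27.7 and 30.1 CPM in cpr5 (log2 fold change 0.61, SE 0.115, adjusted p = 0.00465). NUP133 (log2 fold change 0.81, adjusted p = 0.0144, and 0.0502 to 0.0675 without xpo4-2 cpr5 replicate 3 or cpr5 replicate 2) and NUP155 (log2 fold change 0.67, adjusted p = 0.0287, and 0.0509 to 0.105 without xpo4-2 cpr5 replicate 2 or 3 or cpr5 replicate 1, 2 or 3) rose too. Nucleoporins that rose numbered 1 without xpo4-2 cpr5 replicate 3 or cpr5 replicate 2, 2 without xpo4-2 cpr5 replicate 2 or cpr5 replicate 1 or 3 and 3 without xpo4-2 cpr5 replicate 1. Of the 5 TOPLESS corepressors 0 rose with edgeR (2 at an unadjusted p under 0.05, 1 with DESeq2 and 3 with limma) and 0 fell with edgeR (0 at an unadjusted p under 0.05, 0 with DESeq2 and 0 with limma), but 3 rose without scaling. The log2 fold changes were TPL 0.30, TPR1 0.25, TPR2 0.45, TPR3 -0.28 and TPR4 -0.04.

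The largest single changes lay partly outside these lists. Among genes with at least 10 counts in each genotype, the 15 largest rises had log2 fold changes from 3.67 to 6.12. AZI1, a lipid transfer protein needed for systemic priming, had 769, 578 and 846 CPM in xpo4-2 cpr5, against 50.9, 35.6 and 44.1 CPM in cpr5 (log2 fold change 4.07, SE 0.652, adjusted p = 0.0019). AIG1, a GTPase induced by avirulent bacteria, had 614, 491 and 702 CPM in xpo4-2 cpr5, against 68.6, 34.0 and 29.1 CPM in cpr5 (log2 fold change 3.78, SE 0.435, adjusted p = 0.000333). The genotypes were far apart in both. AT1G67105, a non-coding RNA in the annotation, had 76.4, 56.6 and 65.1 CPM in xpo4-2 cpr5, against 0.854, 1.398 and 0.544 CPM in cpr5 (log2 fold change 6.12, SE 1.25, adjusted p = 0.00667), but its wild-type libraries held 1.27, 162 and 75.3 CPM. TH8, an h-type thioredoxin, had 19.1, 13.7 and 16.96 CPM in xpo4-2 cpr5, against 0.373, 0.311 and 0 CPM in cpr5 (log2 fold change 6.11, SE 0.762, adjusted p = 0.000493). AT3G05170, a phosphoglycerate mutase family protein, had 11.4, 10.3 and 12.7 CPM in xpo4-2 cpr5, against 0.16, 0.259 and 0.121 CPM in cpr5 (log2 fold change 5.93, SE 0.337, adjusted p = 3.71e-05). It had 9.34 and 8.30 CPM in xpo4-2 and 6.75, 10.7 and 8.95 CPM in wild type. HEC1 (log2 fold change 3.88, adjusted p = 0.00106) and MYB31 (log2 fold change 3.71, adjusted p = 0.00427) rose, a bHLH and a MYB factor. AT2G41230 (log2 fold change 3.99, adjusted p = 0.00186) and AT2G41231 (log2 fold change 4.11, adjusted p = 0.00162) are neighbours and rose together, with the annotation naming the product of AT2G41230 an ORGAN SIZE-like protein. Less firm were ADT6 (log2 fold change 4.94, adjusted p = 0.0317, and 0.0595 to 0.102 without xpo4-2 cpr5 replicate 1, 2 or 3 or cpr5 replicate 2 or 3), AT1G32950 (log2 fold change 4.06, adjusted p = 0.0338, and 0.0627 to 0.113 without xpo4-2 cpr5 replicate 1, 2 or 3 or cpr5 replicate 1 or 3), AT5G52730 (log2 fold change 3.92, adjusted p = 0.0135, and 0.0634 without cpr5 replicate 2), AT2G36690 (log2 fold change 3.73, adjusted p = 0.0153, and 0.0527 to 0.0659 without xpo4-2 cpr5 replicate 3 or cpr5 replicate 1 or 2) and AT1G11920 (log2 fold change 3.67, adjusted p = 0.0255, and 0.0585 to 0.0914 without xpo4-2 cpr5 replicate 1 or 3 or cpr5 replicate 1, 2 or 3), which encode an arogenate dehydratase, a subtilase, a copper transport family protein, an oxygenase and a pectin lyase-like protein.

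The 15 largest falls ran from -4.05 to -5.51 and included COR15A, VSP2, NEET, SESA1 and LHCB1.4, described above. AT1G66100, a thionin, had 2.69, 1.62 and 3.21 CPM in xpo4-2 cpr5, against 118, 102 and 89.9 CPM in cpr5 (log2 fold change -5.35, SE 0.35, adjusted p = 4.06e-05). TDR1 (AT3G23230), an ERF-type factor, had 0.137, 1.12 and 0.284 CPM in xpo4-2 cpr5, against 20.22, 13.4 and 14.3 CPM in cpr5 (log2 fold change -4.98, SE 0.63, adjusted p = 0.000534). AT4G17470, an alpha/beta-hydrolase, had 1.68, 1.98 and 1.66 CPM in xpo4-2 cpr5, against 49.1, 50.7 and 49.2 CPM in cpr5 (log2 fold change -4.80, SE 0.474, adjusted p = 0.00017). The highest double-mutant library lay far below the lowest cpr5 library in each. AT3G05950 (log2 fold change -5.23, adjusted p = 0.000699), AT1G31690 (log2 fold change -4.73, adjusted p = 0.000375), AT2G47880 (log2 fold change -4.45, adjusted p = 0.000493) and AT5G28237 (log2 fold change -4.34, adjusted p = 0.000118) were further deep falls. They encode a cupin, a copper amine oxidase, a glutaredoxin and a pyridoxal-phosphate enzyme. AT2G01422 (log2 fold change -4.61, adjusted p = 0.0229, and 0.068 to 0.0765 without xpo4-2 cpr5 replicate 1, 2 or 3) and AT1G55590 (log2 fold change -4.46, adjusted p = 0.0247, and 0.0524 to 0.0699 without xpo4-2 cpr5 replicate 1 or 3 or cpr5 replicate 1, 2 or 3) completed the falls. AT3G05950 had 1.67 and 3.77 CPM in xpo4-2 and 0.121, 0 and 0.0526 CPM in wild type, against cpr5 libraries at 21.7, 12.0 and 12.4 CPM.

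A further 29 genes that passed had no count in 1 of the genotypes, 10 in cpr5 and 19 in the double mutant, and their folds are lower bounds set by 3 counts over the group. AT4G02720 had 28.9, 26.6 and 28.4 CPM in xpo4-2 cpr5, against 0, 0 and 0 CPM in cpr5, at least 509-fold higher. AT2G43535, a knottin, was at least 233-fold higher, at 12.6, 22.8 and 3.003 CPM in xpo4-2 cpr5, against 0, 0 and 0 CPM in cpr5. HB20, a homeobox factor, and EMB1895 were at least 63.8-fold and 40.5-fold higher, with adjusted p = 0.0562 to 0.0904 without xpo4-2 cpr5 replicate 1, 2 or 3 or cpr5 replicate 1, 2 or 3, and 0.0786 to 0.117 without xpo4-2 cpr5 replicate 1, 2 or 3 or cpr5 replicate 1, 2 or 3. EXO70G1, which encodes a subunit of the exocyst, was at least 309-fold higher. In the other direction NRAMP6, a metal transporter, had 0, 0 and 0 CPM in xpo4-2 cpr5, against 8.54, 3.83 and 6.46 CPM in cpr5, at least 139-fold lower. EOL2, AT1G69523, AT5G42825 and AT1G19320 were at least 80.8-fold, 70.5-fold, 58.3-fold and 47.6-fold lower, where EOL2 had adjusted p = 0.0555 without cpr5 replicate 1. AT1G19320 encodes a thaumatin-like protein. AT5G42825 had 0, 0 and 0 CPM in xpo4-2 cpr5, against 6.88, 0.414 and 0.604 CPM in cpr5, with 1 cpr5 library far above the others. A difference in level and an assignment of the reads to some other transcript cannot be told apart in such genes.

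The effect of xpo4-2 in cpr5 was tested against its effect in wild type, with no library shared between the 2 contrasts. It was more positive in cpr5 for 691 genes (3.2%) and more negative for 1189 (5.51%) of 21580, or 8.71% in all. In wild type xpo4-2 raised 163 genes (0.755%) and lowered 423 (1.96%). That contrast rests on 2 xpo4-2 libraries, and XPO4 itself did not pass in it (log2 fold change -2.87, adjusted p = 0.121). A gene that did not pass there may therefore still respond to xpo4-2 in wild type. Of the 1904 genes that rose in the double mutant, 49 also rose in xpo4-2 and 37 fell there, and 479 had an effect that was more positive in cpr5. Of the 2778 that fell, 209 also fell in xpo4-2 and 20 rose there, and 1033 had a more negative effect in cpr5. The 209 shared falls are 7.52% of the falls in cpr5 and 49.4% of those in wild type, and the 49 shared rises are 2.57% and 30.1%. By list, the xpo4-2 effect was more negative in cpr5 for the photosystem genes and more positive for the phosphate genes, whereas jasmonate signalling genes fell in both backgrounds. With 2 xpo4-2 libraries the interaction is the less precise test. Wild type also varied, with r across genes of 0.898 to 0.94 between its libraries, beside 0.964 to 0.974 in cpr5. Without 1 library of wild type, cpr5 or xpo4-2 cpr5 the counts ran from 272 to 1122 genes and from 621 to 1614 genes. The highest of both came without wild type replicate 1.

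**Figure D5:**
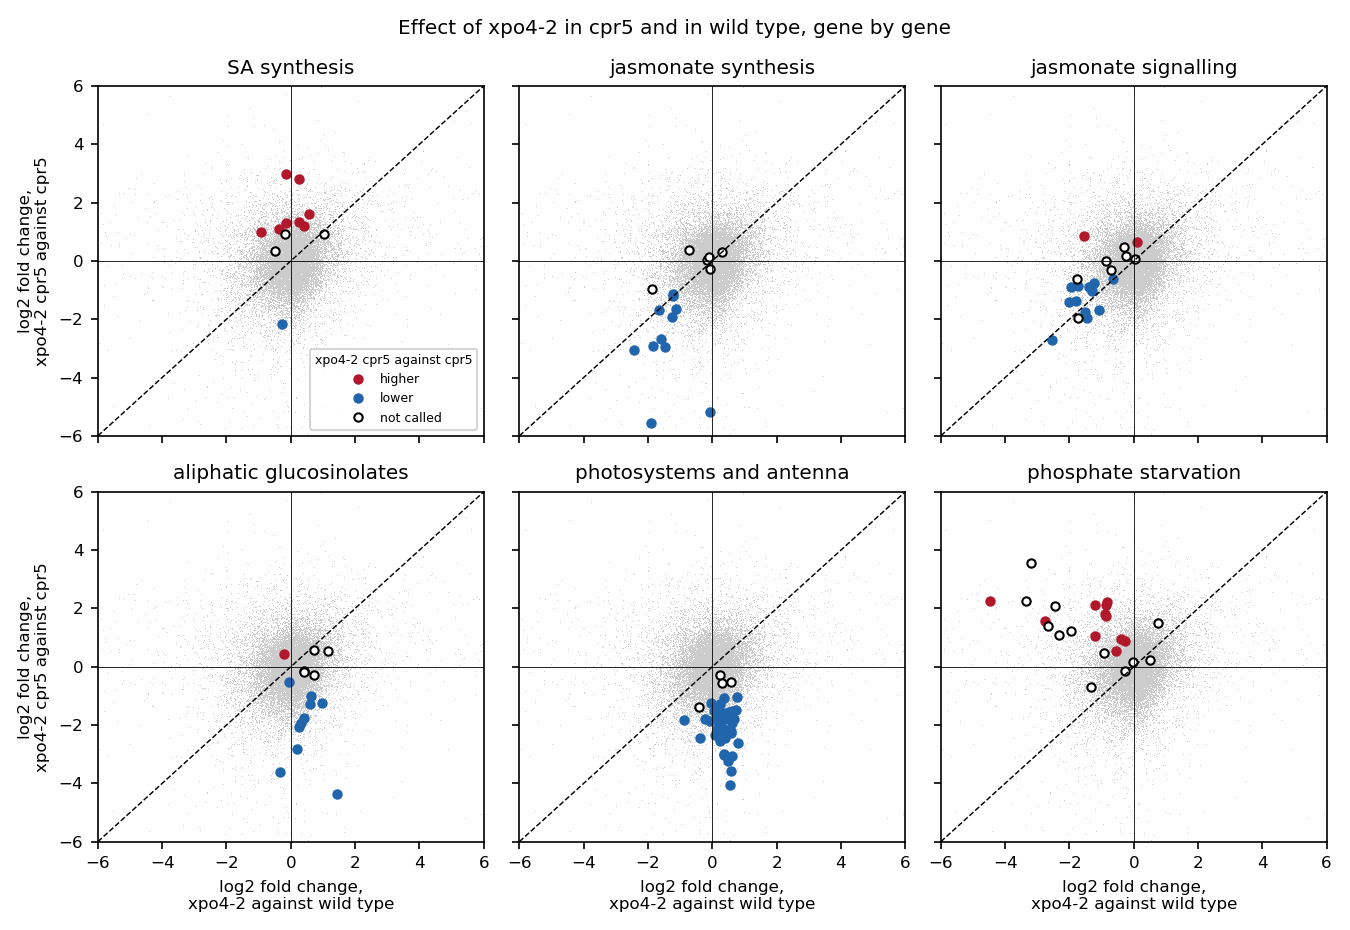
Log2 fold change of xpo4-2 cpr5 against cpr5 (vertical axis) against that of xpo4-2 against wild type (horizontal axis) for the tested members of 6 lists, over all tested genes in grey. Red members rose, blue members fell and open members did not pass in the double mutant against cpr5, and on the dashed line both effects are equal. Jasmonate signalling genes lie near that line, photosystem genes lie below it at values near 0 in wild type, and phosphate genes lie above it.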

How the data were processed

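Strand-specific mRNA-seq of whole Arabidopsis seedlings gave 11 libraries. The authors deposited a table of read counts per gene and a table of TPM per transcript, whose name credits kallisto. The submitters' processing notes name HISAT2 2.0.4, HTSeq 0.6.1p1 and the TAIR10 build, with no role given, and the sources used here do not give whether the counting used strand. From the deposited counts, edgeR 4.0.16 (R 4.3.3) removed 580 genes with filterByExpr, scaled libraries by TMM and fitted all 11 libraries in 1 quasi-likelihood model with the genotype as the only term. Contrasts were xpo4-2 cpr5 against cpr5 and the effect of xpo4-2 in cpr5 minus that in wild type, with Benjamini-Hochberg adjustment over 21580 genes and no fold threshold. The common dispersion was 0.093. CPM values use the TMM library sizes, and SEs come from the fit. The script was tested on simulated data. DESeq2 1.42.0 and limma 3.58.1 (on log2 of gene sums of the deposited TPM plus 0.5 or 0.1) were alternatives, beside other scalings and filters, a fit of the compared groups alone, a replicate block and leaving out each library.

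Genes were grouped into 48 lists, of whose names 1024 matched a locus and 949 were tested. The comparison, the lists and their members were chosen with earlier results of these data known, so that counts by list describe and do not test. Named were XPO4 and CPR5, in each list up to 3 genes a direction with the lowest p, the 15 largest rises and falls with at least 10 counts in each genotype, and up to 5 a direction with no count in 1 genotype; other members are named as such. Promoters are the 250 bases before each gene model in RefSeq TAIR10.1, searched on both strands, and symbols and products are those of RefSeq or the lists. For genes with no count in a genotype, bounds use 3 counts over its libraries.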

Additional observations from a re-analysis of the deposited data

Results flagged for a closer look

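The effect of xpo4-2 in cpr5 was set against its effect in wild type, and the following genes described above are singled out because edgeR's test of that difference had an adjusted p under 0.05, as it did for 8.71% of the genes tested. Values are log2 differences, and a positive one means a more positive effect in cpr5. No cause was tested, and only 2 xpo4-2 libraries enter the difference. For genes with libraries at 0 in a group, JMT, IAA6, TH8 and AT1G69523 among them, the fitted value depends on the prior count and is no bound. Among the SA and immune genes the difference was 3.12 for ICS1, 2.98 for FMO1, 2.54 for PBS3, 1.91 for EDS5, 1.44 for DMR6, 1.08 for CBP60G and 0.78 for UGT74F2. In the WRKY family it was 3.89 for WRKY50, 3.47 for WRKY58, 3.42 for WRKY54, -2.44 for WRKY44, 2.32 for WRKY47, 2.148 for WRKY60 and 1.79 for WRKY70. In the receptor kinases and channels it was 4.21 for CRK36, 4.11 for CRK37, 3.16 for CRK13, 1.96 for WAK1, 1.71 for CRK18, 1.204 for CNGC19, -1.13 for CRK42 and -0.78 for CML12. Among ER and autophagy genes it was 1.55 for PDIL1-2, 0.92 for PDIL1-1 and 0.91 for ATG18F. Among jasmonate genes it was -5.11 for JMT, -2.43 for VSP2, 2.42 for MYC3 and -1.47 for AOS. For glucosinolates, camalexin and flavonoids it was -3.28 for MYB29, -3.17 for IGMT2, -3.02 for CYP79F1, -2.32 for BCAT4, -2.22 for MAM1, -2.21 for IPMI2, -2.18 for CYP83A1, -1.88 for IMD1 and 0.97 for MYB51. Among glutathione transferases the values were -3.78 for GSTF14, 3.02 for GSTU10, -2.79 for GSTU20, -2.01 for GSTU18, -1.52 for GSTU13 and -1.20 for GSTF8. In the photosystem and carbon fixation lists the values were -4.61 for LHCB1.4, -3.72 for LHCB3, -3.34 for CA1, -2.42 for PSBQ-2, -2.38 for RBCS3B, -2.27 for PSBQ-1, -2.03 for PSAH-1, -1.77 for RBCS1A, -1.72 for SHM1, -1.57 for PGK1, -1.54 for SBPASE and -1.47 for GLDP1. In the lists of chlorophyll and plastid regulators they were -2.36 for CHLH, -1.88 for CRD1, -1.86 for DVR, -1.70 for CHLM, -1.62 for PORC, -0.87 for CHLD and -0.77 for SIG2. Growth genes and aquaporins had -5.36 for IAA6, 3.18 for XTH10, -3.15 for SAUR27, -2.70 for TIP2;2, -2.56 for SAUR62, -2.16 for PIP2A, -2.09 for PIP2;3, -1.91 for IAA19, -1.82 for TIP2;1, -1.71 for TIP1;1, -1.63 for XTH6, -1.49 for KNOLLE, -1.25 for IAA8, -1.25 for IAA3, -1.15 for PIP1;5 and -1.12 for CDKB2;1. Nutrient genes had 10.87 for NRT1.7, 4.34 for AT4, -4.21 for NEET, 3.08 for PHT1;9, 2.99 for PLDP2, 2.71 for PAP17, 2.63 for SPX1, 2.29 for MGD2, 1.805 for YSL3, -1.33 for GLN2 and -1.08 for GLU1. Cold, heat, clock and senescence genes had -2.47 for COR15A, -2.11 for COR15B, -2.05 for HSFA3 and -1.66 for CHE. Transport receptors, nucleoporins and tissue markers had -2.73 for SESA1 and -1.63 for IMPA-6. Genes outside the lists had 11.75 for ADT6, 11.71 for AT1G67105, -10.65 for AT3G05950, 9.30 for TH8, -8.54 for AT1G69523, 6.21 for AT2G41231, 5.98 for MYB31, 5.92 for AT3G05170, 5.52 for AT2G41230, -4.89 for AT1G31690, -4.86 for TDR1, 4.39 for AZI1, -3.99 for AT1G66100, -3.77 for AT2G47880, 3.37 for HEC1 and 2.64 for AIG1. No group held the 4 or more libraries needed to look for a single outlying sample.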

How the results depend on the processing

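The number of genes higher in xpo4-2 cpr5 than in cpr5, 1904 as reported, was 4247 without scaling, 3127 with only the compared groups in the fit, 5458 with limma on log2(TPM + 0.5), 5006 with limma on log2(TPM + 0.1) and 5118 with limma on log2(TPM + 0.5) and no filter. The number lower, 2778, was 1787 without scaling and 1708, 1677 and 1622 with limma in the same order. Without scaling the median log2 fold change over all genes was 0.27. The limma settings changed the quantification, the test and the scaling at once, and the cause of their counts was not tested. For the difference between backgrounds, 691 genes were more positive in cpr5, and 1354 without scaling, 1345 with DESeq2 and 1532, 1365 and 1338 with limma. A further 1189 were more negative in cpr5, and 784 without scaling and 756, 732 and 697 with limma. Leaving out 1 library gave 852 to 1365 higher and 1819 to 2395 lower genes, with the fewest of both without cpr5 replicate 2, and 211 to 1122 and 416 to 1614 for the difference between backgrounds. Without xpo4-2 replicate 1 that difference rests on 1 xpo4-2 library, which is assumed to vary like the other groups. The titles give the genotypes the same replicate numbers. Same-numbered libraries of xpo4-2 cpr5 and cpr5 did not deviate together (r across genes of -0.00643, -0.00865 and 0.0446). That check left out wild type and xpo4-2, and a low r cannot exclude a shared sowing or batch. With the number as a replicate block 1682 genes were higher and 2657 lower, and 444 and 969 for the difference between backgrounds. RLE scaling and the other filters on low counts left these 4 counts within 1.5 times of those reported. The 279 genes named in the text gave 2786 values under settings other than leaving out a library. Of these, 2671 kept direction and side of the threshold, 79 no longer passed, 36 newly passed and 0 changed sign among those called. Leaving out a library gave 1672 values, of which 229 no longer passed and 0 changed sign among those called. Of all 4682 genes that passed, 2054 passed under every setting that gave a value. Some counts by list moved by over 1.5 times beyond those given above. Without scaling rises numbered 5 (3 as reported) for glutathione transferases of tau and phi classes, 4 (2 as reported) for SIM/SMR and KRP cell cycle inhibitors and 6 (2 as reported) for SAUR growth genes. With limma on log2(TPM + 0.5) rises numbered 31 (17 as reported) for WRKY transcription factors, 19 (12 as reported) for cysteine-rich receptor-like kinases, 5 (3 as reported) for glutathione transferases of tau and phi classes, 4 (2 as reported) for SIM/SMR and KRP cell cycle inhibitors, 9 (5 as reported) for alpha-expansins, 9 (2 as reported) for SAUR growth genes, 4 (0 as reported) for circadian clock, 15 (8 as reported) for autophagy, 10 (6 as reported) for nucleoporins and 6 (2 as reported) for root and root hair, and falls 11 (19 as reported) for chlorophyll synthesis. The cause of the losses was not tested. One count was worth 0.0406 to 0.0604 CPM, which limits what can be said of genes under about 1 CPM.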

Other observations

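NRT1.7, AT3G05170 and AT3G05950 had levels that each single comparison hides. NRT1.7 averaged 184 ± 66.3 CPM in xpo4-2 cpr5, 1.97 ± 0.736 CPM in xpo4-2 (n = 2), 11.02 ± 0.208 CPM in cpr5 and 224 ± 41.1 CPM in wild type (SD, n = 3 for the others). AT3G05170 was at 11.5 CPM in xpo4-2 cpr5, 8.82 CPM in xpo4-2, 0.18 CPM in cpr5 and 8.80 CPM in wild type, so that cpr5 alone stood apart. AT3G05950 was at 0.402, 2.72, 15.4 and 0.0577 CPM in the same order of genotypes, and here cpr5 was highest. The wild-type libraries of AT1G67105 ran from 1.27 to 162 CPM, a spread that its fold change between the mutants does not show. These genes were chosen after their values were seen.

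The 10 most abundant genes took 3.23% to 3.66% of the counts in xpo4-2 cpr5, against 5.54% to 5.8% in cpr5. Genes with a count numbered 21386 to 21676 per library in xpo4-2 cpr5, against 21688 to 21903 in cpr5.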
